A study of Mus musculus with 56 samples.

Results

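Urea cycle and amino acid catabolism genes were followed in the livers of 56 mice by RNA sequencing. The 53 genes were chosen by name, as rows of the deposited count table whose gene symbol is on a list of enzymes and mitochondrial carriers that dispose of nitrogen or break down amino acids. They are 53 of 21935 genes in the table, and all 53 passed the filter on low counts that left 14105 genes for testing. The list was drawn up with earlier results of these data known. Shares of all genes given beside its counts are therefore no test of the set. Male C57BL/6J mice, 5 to 6 weeks old on arrival, ate chow or the AMLN diet, rich in trans-fat, fructose and cholesterol, for 36 weeks before dosing, and the AMLN-fed mice, a diet-induced model of obesity and steatohepatitis (DIO-MASH), were kept in the study only if a liver biopsy showed steatosis and fibrosis. They then received daily subcutaneous injections for 8 weeks while the diets went on, and livers were taken from 8 mice in each of 7 groups. Chow-fed mice were given vehicle only (chow vehicle). The 6 AMLN-fed groups were given vehicle (DIO-MASH vehicle), a low (0.05 mg/kg) or a high (0.2 mg/kg) dose of zalfermin, a low (3 µg/kg) or a high (120 µg/kg) dose of semaglutide, or 0.05 mg/kg zalfermin with 3 µg/kg semaglutide as separate injections (combination). Zalfermin mimics FGF21, a hormone made largely by the liver, and semaglutide acts on the GLP-1 receptor. The doses of the combination are those in the study's methods, whereas the study's entry in the data archive names both high doses instead. All treated mice stayed on the AMLN diet, so chow vehicle mice differ from every other group in diet. Each group is 8 separate animals, and the p-values measure the spread between these mice. Low-dose semaglutide mouse 6 and low-dose zalfermin mouse 1 stood apart from their groups in the 53 genes, and values without them are given with the counts of calls.

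The liver is where most surplus amino acid nitrogen becomes urea. Transaminases collect amino groups on glutamate and aspartate, glutamate dehydrogenase and glutaminase release ammonia, and the urea cycle, which begins in periportal hepatocyte mitochondria, joins ammonia and aspartate nitrogen into urea. The carbon skeletons of proline, tyrosine, tryptophan, serine, histidine, methionine, lysine and the branched-chain amino acids are broken down by separate routes that feed the citric acid cycle, glucose synthesis or one-carbon metabolism. Many of these enzymes are abundant in hepatocytes and scarce in other liver cells, and several respond to glucagon, glucocorticoids and protein intake.

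Most of the 53 genes were higher in chow vehicle than in DIO-MASH vehicle livers, and most rose with the combination and with high-dose zalfermin. Levels are CPM, the reads of a gene per 1000000 counted reads with library sizes scaled by TMM, and 3 values in a row are the lowest mouse, the median and the highest mouse of a group of 8. A gene is called changed when edgeR's quasi-likelihood test gives an adjusted p under 0.05 over 14105 genes. A call is lost where it misses that threshold in any of 30 alternatives, 24 with a mouse left out and 6 of the processing. The highest adjusted p among them is given beside it. These losses are given for genes described in full by the rule stated with the processing, and only against DIO-MASH vehicle. Other calls carry no such count, and its absence there does not mean that they were kept. Scaling to hepatocyte markers is not among the 30 alternatives, and calls that it turned from higher to lower are counted further below. In chow vehicle against DIO-MASH vehicle, 51 of 53 genes were higher and 1 was lower, where 55.4% of all genes were called and 26.5% were higher. With the combination 38 were higher and 1 lower (all genes, 20.9% called and 10% higher), and with high-dose zalfermin 44 were higher and 1 lower (all genes, 17.2% called and 8.54% higher). With high-dose semaglutide 13 were higher and none lower (all genes, 2.43% called and 1.43% higher), and with low-dose zalfermin 12 were higher and none lower (all genes, 0.468% called and 0.418% higher). Leaving out 1 mouse at a time gave 4 to 21 calls with high-dose semaglutide and 1 to 23 with low-dose zalfermin, the lowest without low-dose zalfermin mouse 1 and the highest without low-dose semaglutide mouse 6. Low-dose semaglutide gave 0 calls among the 53 genes and 0% of all genes by edgeR, with 25 of the 53 at an unadjusted p under 0.05 and 3 of them called by DESeq2. The median log2 fold change of the 53 genes was 1.01 in chow vehicle, 0.56 with the combination, 0.73 with high-dose zalfermin, 0.41 with low-dose zalfermin, 0.30 with high-dose semaglutide and 0.27 with low-dose semaglutide, beside medians over all genes between -0.03 and -0.00. The mice of a group did not overlap those of DIO-MASH vehicle for 36 genes (all genes, 16%) in chow vehicle, 19 genes (all genes, 3.98%) with the combination, 30 genes (all genes, 4.80%) with high-dose zalfermin, 10 genes (all genes, 0.489%) with low-dose zalfermin, 0 genes (all genes, 0.0780%) with low-dose semaglutide and 0 genes (all genes, 0.340%) with high-dose semaglutide. All 6 comparisons use the same 8 DIO-MASH vehicle mice, so the fold changes are not independent of one another.

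The 53 genes together took 2.26%, 2.41% and 2.63% of the counted reads in DIO-MASH vehicle livers (lowest mouse, median and highest) and 3.29%, 4.03% and 4.39% in chow vehicle livers, and these ranges did not meet. The share was 3.17%, 3.45% and 3.91% with the combination and 3.52%, 3.93% and 4.39% with high-dose zalfermin. Low-dose zalfermin livers gave 2.84%, 3.12% and 3.96%, low-dose semaglutide livers 2.40%, 2.67% and 4.36% and high-dose semaglutide livers 2.40%, 2.92% and 3.47%. The combination and both zalfermin groups lay above every DIO-MASH vehicle mouse, and both semaglutide groups reached into its range. After TMM scaling the summed level was 21635 ± 1277 CPM in DIO-MASH vehicle, 49151 ± 6098 CPM in chow vehicle, 36025 ± 3212 CPM with the combination and 40008 ± 4965 CPM with high-dose zalfermin (mean ± SD, n = 8).

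**Figure D1:**
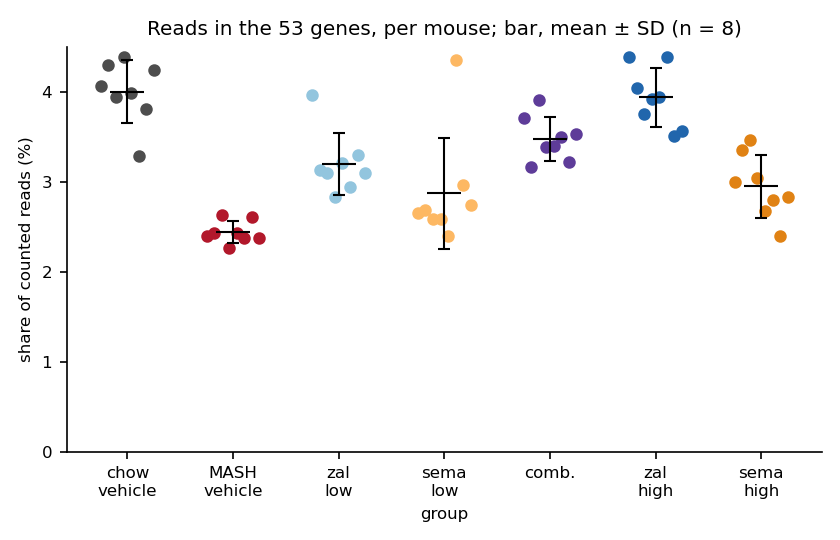
Share of counted reads (%, vertical axis) in the 53 genes for each mouse (points) of the 7 groups (zal, zalfermin, sema, semaglutide, comb., combination, MASH vehicle, DIO-MASH vehicle), with group mean ± SD (bars, n = 8). DIO-MASH vehicle mice lie between 2.26% and 2.63% and chow vehicle mice between 3.29% and 4.39%, and 1 low-dose semaglutide mouse stands at 4.36%.

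Library depth ran from 5228187 to 20885786 counted reads per mouse with a median of 12206788. The livers carried the markers of their labelled tissue. In chow vehicle, 5 of 6 hepatocyte secretory markers outside the 53 genes (Alb, Ttr, Apoh, Hp, Ahsg and Serpina1a, which has near-identical paralogs) were higher than in DIO-MASH vehicle, with a median log2 fold change of 1.22. In the same comparison 5 of 7 stellate cell, 6 of 6 monocyte-derived macrophage, 5 of 5 T cell and 4 of 4 B cell markers were lower. With the combination 5 of 6 hepatocyte markers were higher (median 0.71) and 5 of 7 stellate cell and 4 of 6 monocyte-derived macrophage markers were lower. With high-dose zalfermin these counts were 5 higher (median 0.58), 3 lower and 4 lower, and with high-dose semaglutide 2 higher, 2 lower and 0 lower. Of 5 markers of Kupffer cells, the resident macrophages, 3 were higher and 0 lower with the combination (median 0.95), 1 and 0 with high-dose zalfermin (median 0.93) and 2 and 1 in chow vehicle (median 0.22). The summed hepatocyte markers ran from 59759.6 to 80274 CPM in DIO-MASH vehicle, 137450.4 to 235483 CPM in chow vehicle, 84328 to 131597 CPM with the combination and 72583 to 129297 CPM with high-dose zalfermin. The summed stellate cell markers ran from 887 to 1586 CPM in DIO-MASH vehicle, 128 to 257 CPM in chow vehicle, 296 to 695 CPM with the combination and 272 to 636 CPM with high-dose zalfermin. Of zone markers outside the 53 genes, 2 of 6 periportal and 5 of 7 pericentral hepatocyte markers were higher in chow vehicle, 1 and 2 with the combination and 1 and 3 with high-dose zalfermin, and 1 of each was lower in chow vehicle. What part these shifts have in the results was not tested. In whole liver RNA, fewer cells of a type and less RNA per cell cannot be told apart.

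The counts of higher and lower genes depended on the scale. With library sizes set by the summed reads of the 6 hepatocyte markers, a scaling chosen after the data had been seen, the median of all genes moved to -1.27 in chow vehicle, -0.66 with the combination and -0.47 with high-dose zalfermin. The scaling shifts every gene of a comparison by about the same amount, so it lowers the 53 genes and all other genes alike. On that scale 8 of the 53 genes were higher and 26 lower in chow vehicle, where 1.08% of all genes were higher and 92.1% lower. With the combination 10 were higher and 16 lower (all genes, 0.674% and 74.9%), and with high-dose zalfermin 23 were higher and 4 lower (all genes, 1.28% and 51.9%). The medians of the 53 genes were -0.29, -0.05 and 0.28, each above the all-gene median of its comparison. Agxt, Ahcy, Ass1, Afmid, Gls2 and Gnmt were called higher on this scale in all 3 of these comparisons, and Got2, Glud1 and Gpt2 were called lower in all 3. Of genes higher under TMM scaling, 24 were called lower on this scale in chow vehicle, 8 with the combination and 0 with high-dose zalfermin. The 8 were Aldh4a1, Bckdhb, Bhmt2, Ftcd, Glud1, Got2, Gpt and Slc25a13. Of genes described in full, those in chow vehicle were Aass, Aldh4a1, Bckdha, Bckdhb, Bhmt2, Fah, Got2, Gpt, Haao, Prodh2, Shmt1 and Uroc1. On this scale Gnmt and Hpd were called higher with low-dose zalfermin, and the same pair was called higher with high-dose semaglutide.

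**Figure D2:**
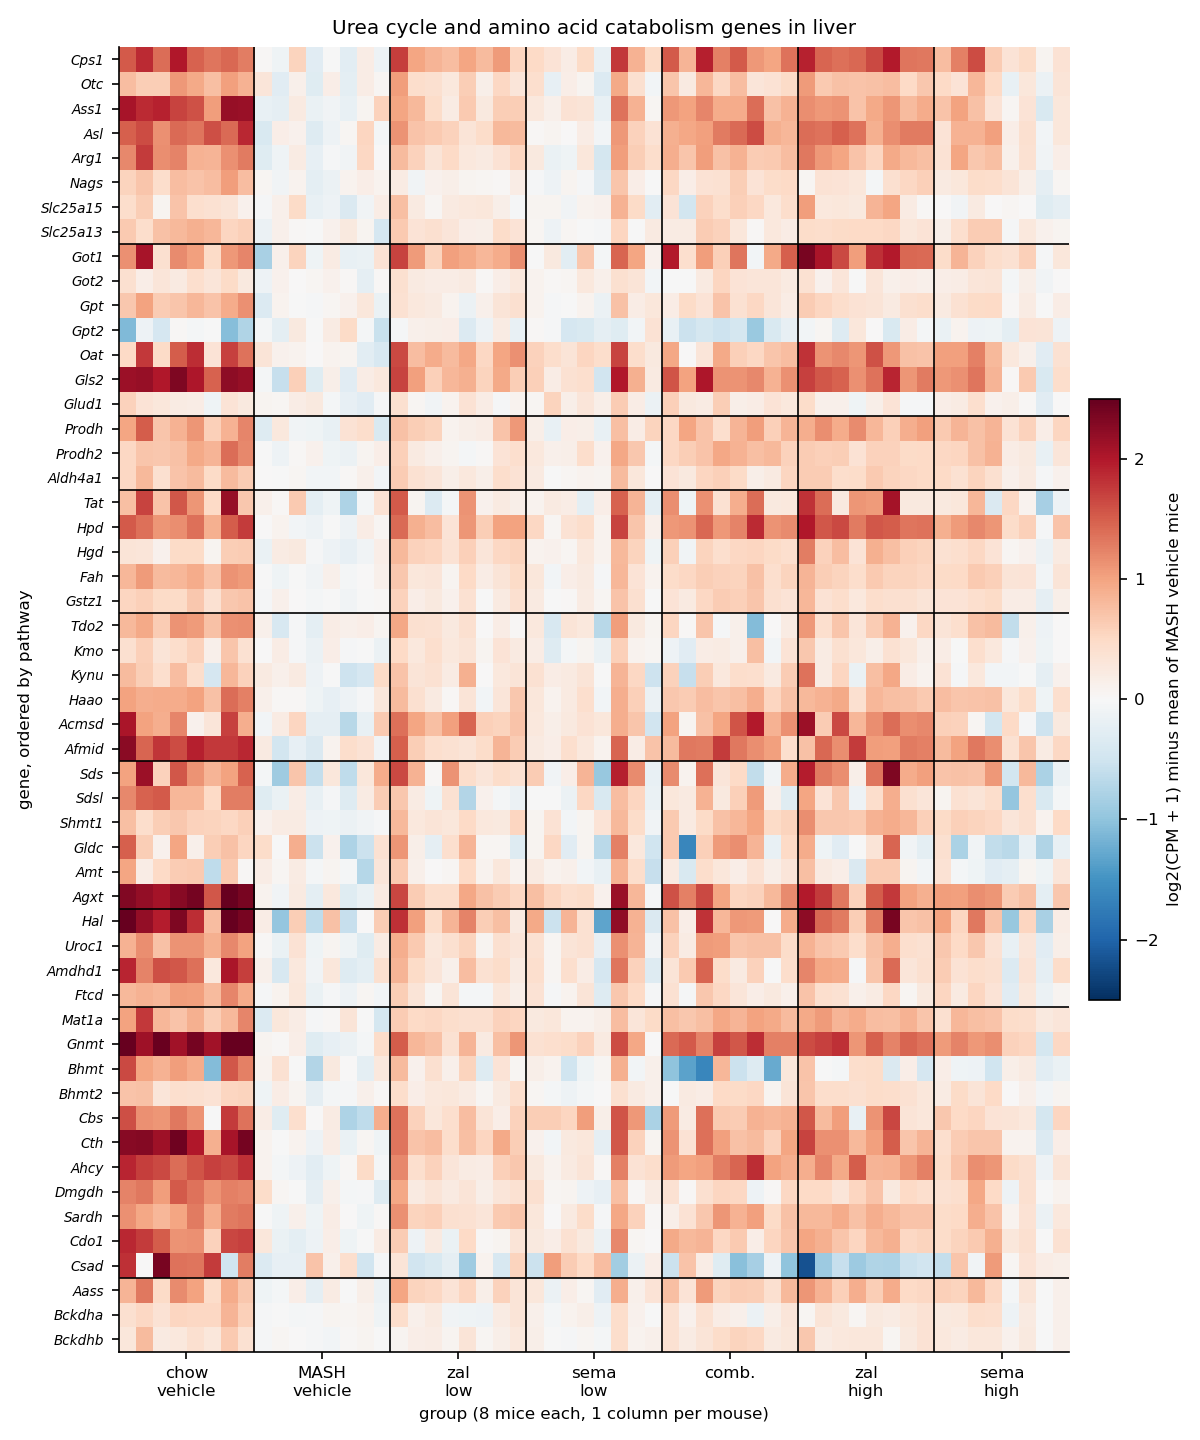
Heat map of the 53 genes (rows, ordered by pathway) in 56 mice (columns, grouped by treatment), coloured by log2(CPM + 1) minus the mean of the 8 DIO-MASH vehicle mice. Chow vehicle columns are mostly red, as are those of the combination and high-dose zalfermin, with pale or blue cells for Gpt2, Bhmt and Csad.

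Of 8 urea cycle enzymes and carriers, the number called higher than in DIO-MASH vehicle was 8 in chow vehicle, 7 with the combination, 8 with high-dose zalfermin, 2 with low-dose zalfermin and 2 with high-dose semaglutide. These 8 are Nags, which makes the activator of the first step, Cps1, Otc, Ass1, Asl and Arg1, which run the cycle in that order, and the ornithine and aspartate carriers Slc25a15 and Slc25a13. On the hepatocyte marker scale there were 1 higher and 4 lower in chow vehicle, 3 higher and 1 lower with the combination and 4 higher and 0 lower with high-dose zalfermin (all genes lower, 92.1%, 74.9% and 51.9%). Their summed level was 3733, 4235 and 5617 CPM in DIO-MASH vehicle, 9612, 12281 and 13862 CPM in chow vehicle, 7422, 8936 and 12063 CPM with the combination and 8886, 9863 and 12524 CPM with high-dose zalfermin, without overlap of these groups with DIO-MASH vehicle. Of the 8 genes, Slc25a15 was not called with the combination (log2 0.36 ± 0.14 (adjusted p = 0.0713)). Nags and Slc25a13, with combination values of 0.42 and 0.30, moved least among those called, and Otc and Arg1 stood at 0.53 and 0.78.

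Cps1 (chr1:67123026-67231259, GRCm38, Ensembl ENSMUSG00000025991) encodes the mitochondrial carbamoyl phosphate synthetase that commits ammonia to the cycle. Cps1 was counted at 1471, 1724 and 2647 CPM in DIO-MASH vehicle livers and at 4364, 4900 and 7128 CPM in chow vehicle livers. The Cps1 values were 3234, 4440 and 6856 CPM with the combination and 4431, 4876 and 7086 CPM with high-dose zalfermin. For Cps1, the CPM were 1582, 2486 and 6070 with low-dose semaglutide, 1868, 2643 and 5560 with high-dose semaglutide and 2595, 3385 and 5920 with low-dose zalfermin. Cps1 was higher in all chow vehicle, combination and high-dose zalfermin mice than in any DIO-MASH vehicle mouse, whereas the low-dose zalfermin, low-dose semaglutide and high-dose semaglutide ranges overlapped that of vehicle. Cps1 had a log2 fold change of 1.33 ± 0.20 (adjusted p = 1.75e-06) with the combination, 1.56 ± 0.20 (adjusted p = 1.01e-07) with high-dose zalfermin and 1.54 ± 0.20 (adjusted p = 7.79e-09) in chow vehicle. The Cps1 log2 fold changes were 0.64 with low-dose semaglutide, 0.76 with high-dose semaglutide and 0.98 with low-dose zalfermin, of which the low-dose zalfermin value passed (adjusted p = 0.0117, lost in 1 of 30 alternatives at up to 0.0882) and the high-dose semaglutide value passed (adjusted p = 0.0262, lost in 8 of 30 alternatives at up to 0.143). The high-dose zalfermin minus chow vehicle difference of Cps1 was 0.03 ± 0.20 (adjusted p = 0.934) on the log2 scale. Asl (chr5:130011258-130029247) cleaves argininosuccinate into arginine and fumarate. Levels of Asl were 224, 295 and 426 CPM in DIO-MASH vehicle and 652, 809 and 1081 CPM in chow vehicle livers. The Asl values were 524, 588 and 906 CPM with the combination and 543, 737 and 829 CPM with high-dose zalfermin. For Asl, the CPM were 280.5, 319.5 and 620.2 with low-dose semaglutide, 281, 379.5 and 596 with high-dose semaglutide and 366, 471 and 640.1 with low-dose zalfermin. For Asl the chow vehicle, combination and high-dose zalfermin mice cleared the highest DIO-MASH vehicle mouse without exception, whereas the low-dose zalfermin, low-dose semaglutide and high-dose semaglutide ranges overlapped that of vehicle. Against DIO-MASH vehicle, Asl differed on the log2 scale by 1.12 ± 0.15 (adjusted p = 1.65e-07) with the combination, by 1.27 ± 0.15 (adjusted p = 1.27e-08) with high-dose zalfermin and by 1.48 ± 0.15 (adjusted p = 1.08e-11) in chow vehicle. Asl log2 fold changes were 0.30 with low-dose semaglutide, 0.51 with high-dose semaglutide and 0.67 with low-dose zalfermin, of which the low-dose zalfermin value passed (adjusted p = 0.0168, lost in 4 of 30 alternatives at up to 0.104) and the high-dose semaglutide value passed (adjusted p = 0.0482, lost in 19 of 30 alternatives at up to 0.167). Ass1 (chr2:31470207-31520672) joins citrulline to aspartate. Ass1 was counted at 792, 852 and 1376 CPM in DIO-MASH vehicle livers and at 1915, 3471 and 4178 CPM in chow vehicle livers. The Ass1 values were 1539, 1816 and 2436 CPM with the combination and 1519, 1874 and 2071 CPM with high-dose zalfermin. For Ass1, the CPM were 818, 1138 and 2375 with low-dose semaglutide, 714, 1176 and 1862 with high-dose semaglutide and 1067, 1426 and 1839 with low-dose zalfermin. In Ass1, no chow vehicle, combination or high-dose zalfermin mouse fell within the DIO-MASH vehicle range, whereas the low-dose zalfermin, low-dose semaglutide and high-dose semaglutide ranges overlapped that of vehicle. For Ass1 the log2 fold change was 1.83 ± 0.17 (adjusted p = 1.03e-12) in chow vehicle, 1.01 ± 0.17 (adjusted p = 1.18e-05) with the combination and 0.96 ± 0.17 (adjusted p = 2.45e-05) with high-dose zalfermin. Those of Ass1 were 0.45 with low-dose semaglutide, 0.42 with high-dose semaglutide and 0.57 with low-dose zalfermin, none of which passed the threshold. Compared with chow vehicle, Ass1 was lower with the combination (log2 difference -0.82 ± 0.17, adjusted p = 1.24e-04).

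Of 7 genes of transamination and glutamate metabolism, the number higher than in DIO-MASH vehicle was 6 in chow vehicle, 6 with the combination, 4 with high-dose zalfermin, 3 with low-dose zalfermin and 0 with high-dose semaglutide, and Gpt2 was lower in chow vehicle and with the combination. Scaled to hepatocyte markers, the calls were 1 higher and 4 lower in chow vehicle, 1 higher and 4 lower with the combination and 3 higher and 3 lower with high-dose zalfermin (all genes lower, 92.1%, 74.9% and 51.9%). Got1 and Got2 are the cytosolic and mitochondrial aspartate transaminases, and Gpt and Gpt2 the alanine transaminases, which have the same division. Oat passes the ornithine amino group on, Gls2 is the liver glutaminase, and Glud1 is glutamate dehydrogenase, whose log2 value was 0.33 ± 0.10 (adjusted p = 0.0161) with the combination and 0.26 ± 0.10 (adjusted p = 0.0263) in chow vehicle.

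Gls2 (chr10:128194457-128210004) releases ammonia from glutamine next to the urea cycle. Levels of Gls2 were 82.5, 128 and 187 CPM in DIO-MASH vehicle and 346, 553 and 628 CPM in chow vehicle livers. The Gls2 values were 227, 272 and 503 CPM with the combination and 267, 331 and 464 CPM with high-dose zalfermin. For Gls2, the CPM were 87.7, 163 and 496 with low-dose semaglutide, 94.3, 208 and 313 with high-dose semaglutide and 181, 224 and 401 with low-dose zalfermin. Gls2 was higher in all chow vehicle, combination and high-dose zalfermin mice than in any DIO-MASH vehicle mouse, whereas the low-dose zalfermin, low-dose semaglutide and high-dose semaglutide ranges overlapped that of vehicle. Gls2 had a log2 fold change of 1.27 ± 0.23 (adjusted p = 3.98e-05) with the combination, 1.43 ± 0.23 (adjusted p = 5.80e-06) with high-dose zalfermin and 2.06 ± 0.23 (adjusted p = 1.65e-10) in chow vehicle. The Gls2 log2 fold changes were 0.66 with low-dose semaglutide, 0.70 with high-dose semaglutide and 0.90 with low-dose zalfermin, of which the low-dose zalfermin value passed (adjusted p = 0.0429, lost in 20 of 30 alternatives at up to 0.231). Oat (chr7:132557478-132576398) encodes ornithine aminotransferase. Oat was counted at 399, 554 and 655 CPM in DIO-MASH vehicle livers and at 665, 1428 and 1889 CPM in chow vehicle livers. The Oat values were 529, 826 and 1030 CPM with the combination and 862, 1139 and 1857 CPM with high-dose zalfermin. For Oat, the CPM were 622, 719 and 1714 with low-dose semaglutide, 432, 811 and 1272 with high-dose semaglutide and 756, 1018 and 1667 with low-dose zalfermin. For Oat the chow vehicle, high-dose zalfermin and low-dose zalfermin mice cleared the highest DIO-MASH vehicle mouse without exception, whereas the combination, low-dose semaglutide and high-dose semaglutide ranges overlapped that of vehicle. Against DIO-MASH vehicle, Oat differed on the log2 scale by 0.62 ± 0.21 (adjusted p = 0.0307, lost in 4 of 30 alternatives at up to 0.0625) with the combination, by 1.20 ± 0.21 (adjusted p = 4.23e-05) with high-dose zalfermin and by 1.29 ± 0.21 (adjusted p = 1.52e-06) in chow vehicle. Oat log2 fold changes were 0.65 with low-dose semaglutide, 0.65 with high-dose semaglutide and 0.996 with low-dose zalfermin, of which the low-dose zalfermin value passed (adjusted p = 0.0157, lost in 2 of 30 alternatives at up to 0.101). Low-dose zalfermin gave Oat a larger point value than the combination, and on the log2 scale the combination minus low-dose zalfermin difference was -0.38 ± 0.21 (adjusted p = 0.304).

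Got1 (chr19:43499752-43524605) had the largest high-dose zalfermin rise of the 7 genes. Levels of Got1 were 75.4, 134 and 195 CPM in DIO-MASH vehicle and 176, 288 and 559.5 CPM in chow vehicle livers. The Got1 values were 126, 265 and 530.1 CPM with the combination and 276, 447 and 686 CPM with high-dose zalfermin. For Got1, the CPM were 111, 149.8 and 365 with low-dose semaglutide, 130.5, 181 and 241 with high-dose semaglutide and 195, 264 and 427 with low-dose zalfermin. In Got1, no high-dose zalfermin or low-dose zalfermin mouse fell within the DIO-MASH vehicle range, whereas the chow vehicle, combination, low-dose semaglutide and high-dose semaglutide ranges overlapped that of vehicle. The low-dose zalfermin margin was very narrow, as its lowest mouse and the highest DIO-MASH vehicle mouse both rounded to 195.1 CPM. For Got1 the log2 fold change was 1.12 ± 0.23 (adjusted p = 6.09e-05) in chow vehicle, 1.05 ± 0.23 (adjusted p = 7.63e-04) with the combination and 1.73 ± 0.24 (adjusted p = 3.59e-07) with high-dose zalfermin. Those of Got1 were 0.46 with low-dose semaglutide, 0.42 with high-dose semaglutide and 1.01 with low-dose zalfermin, of which the low-dose zalfermin value passed (adjusted p = 0.0245, lost in 5 of 30 alternatives at up to 0.142). With high-dose zalfermin, Got1 was higher than in chow vehicle by 0.61 ± 0.23 (adjusted p = 0.0307) and higher than with high-dose semaglutide by 1.31 ± 0.23 (adjusted p = 0.00303). Got2 (chr8:95864134-95888547) encodes the mitochondrial form. Got2 was counted at 316, 377 and 397 CPM in DIO-MASH vehicle livers and at 416, 454 and 510.4 CPM in chow vehicle livers. The Got2 values were 365, 441 and 531 CPM with the combination and 364, 408 and 479 CPM with high-dose zalfermin. For Got2, the CPM were 349, 398 and 485 with low-dose semaglutide, 344, 411 and 459 with high-dose semaglutide and 375, 424 and 484 with low-dose zalfermin. Got2 was higher in each chow vehicle mouse than in any DIO-MASH vehicle mouse, whereas the combination, high-dose zalfermin, low-dose zalfermin, low-dose semaglutide and high-dose semaglutide ranges overlapped that of vehicle. Got2 had a log2 fold change of 0.24 ± 0.07 (adjusted p = 0.0125) with the combination, 0.19 ± 0.07 (adjusted p = 0.0657) with high-dose zalfermin and 0.32 ± 0.07 (adjusted p = 2.30e-04) in chow vehicle. The Got2 log2 fold changes were 0.16 with low-dose semaglutide, 0.13 with high-dose semaglutide and 0.21 with low-dose zalfermin, none of which passed the threshold.

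The balance of Got1 to Got2 was tested by an exact two-sided permutation test over mice on the difference of their log2 CPM, with adjustment over 12 such tests and a smallest possible p of 1.55e-04. In DIO-MASH vehicle mice the difference Got1 minus Got2 was -1.47 ± 0.37 (SD, n = 8, all groups), and with high-dose zalfermin it was 0.07 ± 0.34, a shift of 1.54 (exact permutation p = 1.55e-04, adjusted p = 9.32e-04). The shift was 0.82 (exact permutation p = 3.11e-04, adjusted p = 0.00124) with low-dose zalfermin, 0.76 (exact permutation p = 0.00388, adjusted p = 0.00932) in chow vehicle and 0.73 (exact permutation p = 0.0216, adjusted p = 0.037) with the combination. It was 0.32 (exact permutation p = 0.0404, adjusted p = 0.0606) with high-dose semaglutide and 0.24 (exact permutation p = 0.274, adjusted p = 0.274) with low-dose semaglutide. Leaving out 1 mouse at a time moved the adjusted p of the combination above 0.05 in 10 of 16 cases, to at most 0.0648 for a shift of 0.55 to 0.75. Library scaling acts on both genes alike, so the difference hardly depends on it.

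The sequence just upstream of Got1 is shown because Got1 moved more than Got2, which encodes the same reaction in another compartment. It is the 250 bases upstream of the RefSeq start in GRCm38.p6, 5′ to 3′ on the strand of the gene, with matches to CCAAT or its reverse complement ATTGG in capitals.
Got1 (chr19:43524606-43524855, minus strand): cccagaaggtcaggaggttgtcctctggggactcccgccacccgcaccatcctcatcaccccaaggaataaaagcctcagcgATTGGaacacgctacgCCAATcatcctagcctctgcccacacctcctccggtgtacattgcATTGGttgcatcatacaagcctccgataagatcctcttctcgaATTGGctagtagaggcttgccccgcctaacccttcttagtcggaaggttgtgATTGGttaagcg
The Got1 window held 5 matches and lies outside the gene as annotated by GENCODE. The Got2 window (chr8:95888402-95888651, minus strand) held none, but 146 of its 250 bases lie within Got2 as annotated there, so the windows are not alike and the Got2 sequence is not shown. Of 27025 genes with such a window, 37.5% held at least 1 match on either strand and 0.248% held 5 or more. The cut of 5 equals the count of Got1, which was picked for its change, so that share is no test of its window. Of the 53 genes, 42 had a window, and 21 of these (50%) held a match, of which 1, Got1 itself, held 5 or more. For the CRE half-site TGACG the counts were 7 of 42 windows (16.7%) against 19.8% of all genes, for the C/EBP palindrome TTGCNNAA 4 of 42 (9.52%) against 10.8%, and for TATAAA 5 of 42 (11.9%) against 14.3%. Both strands were searched, and a match describes letters in the window only.

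Gpt (chr15:76695716-76699686) encodes the cytosolic alanine transaminase. Levels of Gpt were 213, 274 and 331 CPM in DIO-MASH vehicle and 423, 461 and 601 CPM in chow vehicle livers. The Gpt values were 306, 346 and 444 CPM with the combination and 318, 361 and 421 CPM with high-dose zalfermin. For Gpt, the CPM were 245, 287 and 448 with low-dose semaglutide, 268, 314 and 382 with high-dose semaglutide and 244, 321 and 359 with low-dose zalfermin. For Gpt the chow vehicle mice cleared the highest DIO-MASH vehicle mouse without exception, whereas the combination, high-dose zalfermin, low-dose zalfermin, low-dose semaglutide and high-dose semaglutide ranges overlapped that of vehicle. Against DIO-MASH vehicle, Gpt differed on the log2 scale by 0.39 ± 0.10 (adjusted p = 0.00346) with the combination, by 0.42 ± 0.10 (adjusted p = 0.00164) with high-dose zalfermin and by 0.83 ± 0.10 (adjusted p = 8.11e-10) in chow vehicle. Gpt log2 fold changes were 0.16 with low-dose semaglutide, 0.25 with high-dose semaglutide and 0.21 with low-dose zalfermin, none of which passed the threshold. Gpt2 (chr8:85492576-85527560) encodes the mitochondrial form. Gpt2 was counted at 402, 586 and 826 CPM in DIO-MASH vehicle livers and at 275, 495 and 607 CPM in chow vehicle livers. The Gpt2 values were 313, 438 and 522 CPM with the combination and 459, 587 and 725 CPM with high-dose zalfermin. For Gpt2, the CPM were 442, 537 and 760.2 with low-dose semaglutide, 499.8, 547 and 756 with high-dose semaglutide and 472, 619 and 685 with low-dose zalfermin. For Gpt2, the DIO-MASH vehicle range overlapped those of all 6 other groups. For Gpt2 the log2 fold change was -0.40 ± 0.14 (adjusted p = 0.0137, lost in 2 of 30 alternatives at up to 0.0698) in chow vehicle, -0.47 ± 0.14 (adjusted p = 0.0132, lost in 1 of 30 alternatives at up to 0.0522) with the combination and -0.05 ± 0.14 (adjusted p = 0.862) with high-dose zalfermin. Those of Gpt2 were -0.14 with low-dose semaglutide, -0.02 with high-dose semaglutide and -0.02 with low-dose zalfermin, none of which passed the threshold. Gpt2 was also lower with the combination than with low-dose zalfermin (log2 difference -0.45 ± 0.14, adjusted p = 0.0415), and it was higher than chow vehicle with high-dose zalfermin by 0.35 ± 0.14 (adjusted p = 0.0425). Low-dose zalfermin (log2 0.38) and high-dose semaglutide (log2 0.38) likewise had Gpt2 called higher than chow vehicle. The difference Gpt minus Gpt2 moved from -1.14 ± 0.31 (SD, n = 8) in DIO-MASH vehicle to 0.13 ± 0.55 in chow vehicle, a shift of 1.27 (exact permutation p = 1.55e-04, adjusted p = 9.32e-04). The combination shifted it by 0.84 (exact permutation p = 4.66e-04, adjusted p = 0.0014) and high-dose zalfermin by 0.46 (exact permutation p = 0.00762, adjusted p = 0.0152). Low-dose zalfermin, low-dose semaglutide and high-dose semaglutide gave exact permutation p of 0.137, 0.114 and 0.138 for shifts of 0.21, 0.28 and 0.26.

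**Figure D3:**
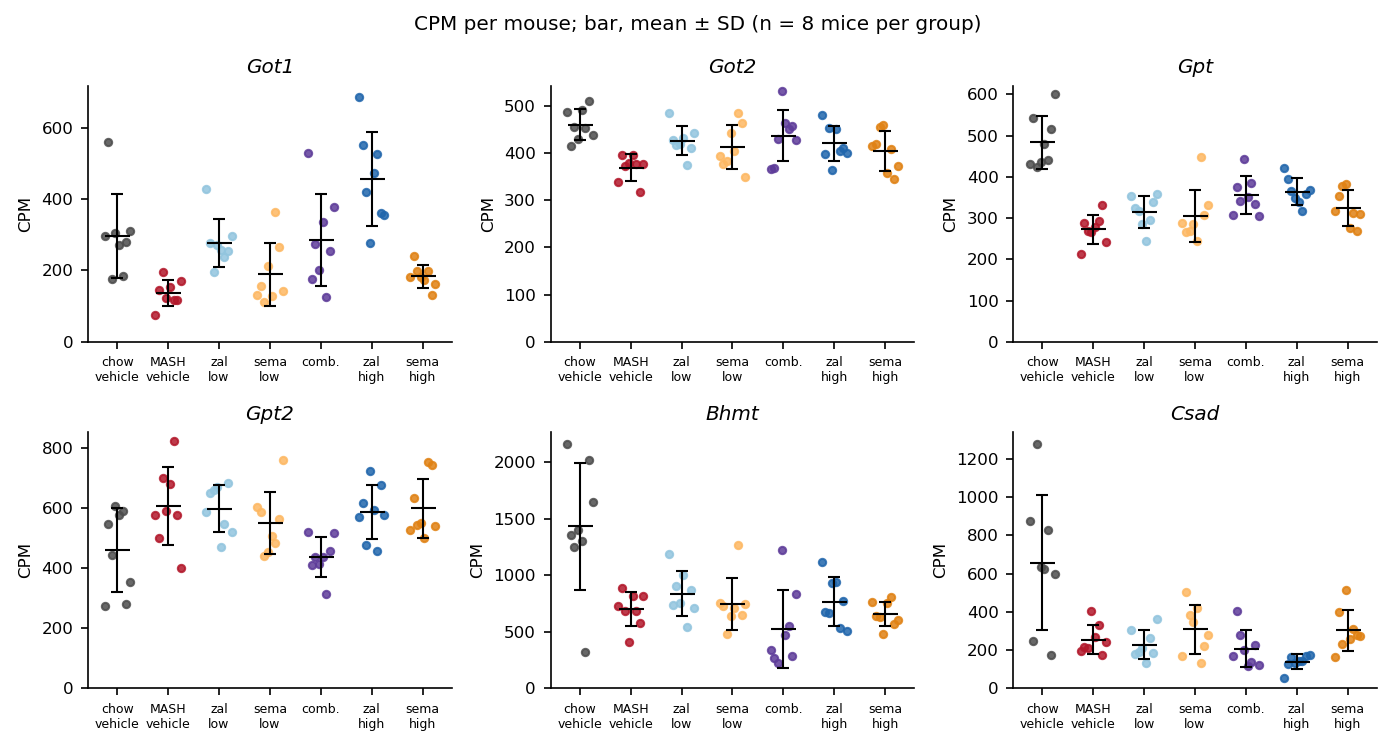
CPM per mouse (points) of Got1, Got2, Gpt, Gpt2, Bhmt and Csad in the 7 groups, with mean ± SD (bars, n = 8), on linear axes from 0. Got1 rises under high-dose zalfermin above most chow vehicle mice, Gpt2 is lowest in chow vehicle and the combination, and Bhmt has its highest mean in chow vehicle. Csad falls under high-dose zalfermin below every DIO-MASH vehicle mouse, by a narrow margin between the nearest mice.

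All 3 proline genes were higher in chow vehicle, with the combination and with high-dose zalfermin. On the hepatocyte marker scale there were 0 higher and 2 lower in chow vehicle, 0 higher and 1 lower with the combination and 1 higher and 0 lower with high-dose zalfermin (all genes lower, 92.1%, 74.9% and 51.9%). Prodh and Prodh2 start the oxidation of proline and hydroxyproline in mitochondria, and Aldh4a1 completes that of proline to glutamate. Prodh (chr16:18060357-18090203) encodes proline dehydrogenase. Levels of Prodh were 40.4, 49.03 and 72.3 CPM in DIO-MASH vehicle and 80.1, 101 and 152 CPM in chow vehicle livers. The Prodh values were 70.9, 91.2 and 109 CPM with the combination and 79.7, 101 and 121 CPM with high-dose zalfermin. For Prodh, the CPM were 46.4, 58.7 and 89.3 with low-dose semaglutide, 59.2, 81.3 and 96.1 with high-dose semaglutide and 56.2, 79.5 and 112 with low-dose zalfermin. Prodh was higher in all chow vehicle and high-dose zalfermin mice than in any DIO-MASH vehicle mouse, whereas the combination, low-dose zalfermin, low-dose semaglutide and high-dose semaglutide ranges overlapped that of vehicle. Prodh had a log2 fold change of 0.74 ± 0.14 (adjusted p = 1.01e-04) with the combination, 0.93 ± 0.14 (adjusted p = 2.30e-06) with high-dose zalfermin and 0.99 ± 0.14 (adjusted p = 5.53e-08) in chow vehicle. The Prodh log2 fold changes were 0.20 with low-dose semaglutide, 0.59 with high-dose semaglutide and 0.53 with low-dose zalfermin, of which the high-dose semaglutide value passed (adjusted p = 0.0158, lost in 1 of 30 alternatives at up to 0.0575). Prodh2 (chr7:30493622-30513402) encodes hydroxyproline dehydrogenase. Prodh2 was counted at 101, 112 and 126 CPM in DIO-MASH vehicle livers and at 159.8, 193 and 295 CPM in chow vehicle livers. The Prodh2 values were 161, 185 and 218 CPM with the combination and 143, 167 and 173 CPM with high-dose zalfermin. For Prodh2, the CPM were 107, 129 and 217 with low-dose semaglutide, 97.1, 149 and 203 with high-dose semaglutide and 108, 126 and 168 with low-dose zalfermin. For Prodh2 the chow vehicle, combination and high-dose zalfermin mice cleared the highest DIO-MASH vehicle mouse without exception, whereas the low-dose zalfermin, low-dose semaglutide and high-dose semaglutide ranges overlapped that of vehicle. Against DIO-MASH vehicle, Prodh2 differed on the log2 scale by 0.74 ± 0.12 (adjusted p = 1.01e-05) with the combination, by 0.55 ± 0.12 (adjusted p = 8.27e-04) with high-dose zalfermin and by 0.91 ± 0.12 (adjusted p = 1.36e-08) in chow vehicle. Prodh2 log2 fold changes were 0.37 with low-dose semaglutide, 0.43 with high-dose semaglutide and 0.23 with low-dose zalfermin, of which the high-dose semaglutide value passed (adjusted p = 0.0391, lost in 11 of 30 alternatives at up to 0.149). Prodh2 was higher with the combination than with low-dose zalfermin by 0.51 ± 0.12 (adjusted p = 0.00581). Aldh4a1 (chr4:139622866-139649690) encodes a dehydrogenase that acts in both routes. Levels of Aldh4a1 were 246, 258 and 284 CPM in DIO-MASH vehicle and 344, 413 and 455 CPM in chow vehicle livers. The Aldh4a1 values were 287, 345 and 391 CPM with the combination and 349, 376 and 407 CPM with high-dose zalfermin. For Aldh4a1, the CPM were 259, 273 and 447 with low-dose semaglutide, 254, 320.2 and 384 with high-dose semaglutide and 285, 326 and 404 with low-dose zalfermin. In Aldh4a1, no chow vehicle, combination, high-dose zalfermin or low-dose zalfermin mouse fell within the DIO-MASH vehicle range, whereas the low-dose semaglutide and high-dose semaglutide ranges overlapped that of vehicle. For Aldh4a1 the log2 fold change was 0.65 ± 0.09 (adjusted p = 2.32e-08) in chow vehicle, 0.40 ± 0.09 (adjusted p = 9.14e-04) with the combination and 0.55 ± 0.09 (adjusted p = 7.91e-06) with high-dose zalfermin. Those of Aldh4a1 were 0.21 with low-dose semaglutide, 0.30 with high-dose semaglutide and 0.34 with low-dose zalfermin, none of which passed the threshold.

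Of 5 tyrosine catabolism genes, the number higher than in DIO-MASH vehicle was 5 in chow vehicle, 4 with the combination, 5 with high-dose zalfermin, 2 with low-dose zalfermin and 2 with high-dose semaglutide. Scaled to hepatocyte markers, the calls were 0 higher and 3 lower in chow vehicle, 1 higher and 0 lower with the combination and 2 higher and 0 lower with high-dose zalfermin (all genes lower, 92.1%, 74.9% and 51.9%). Tat starts the route, Hpd makes homogentisate, Hgd opens its ring, and Gstz1 and Fah finish it to fumarate and acetoacetate. Hpd (chr5:123171807-123182727) encodes 4-hydroxyphenylpyruvate dioxygenase, which acts on the product of Tat. Hpd was counted at 1084, 1191 and 1354 CPM in DIO-MASH vehicle livers and at 2214, 3079 and 3966 CPM in chow vehicle livers. The Hpd values were 2510, 2638 and 4358 CPM with the combination and 2905, 3422 and 4739 CPM with high-dose zalfermin. For Hpd, the CPM were 1236, 1574 and 3819 with low-dose semaglutide, 1158, 2085 and 2739 with high-dose semaglutide and 1498, 2283 and 3179 with low-dose zalfermin. Hpd was higher in all chow vehicle, combination, high-dose zalfermin and low-dose zalfermin mice than in any DIO-MASH vehicle mouse, whereas the low-dose semaglutide and high-dose semaglutide ranges overlapped that of vehicle. Hpd had a log2 fold change of 1.29 ± 0.17 (adjusted p = 1.38e-07) with the combination, 1.54 ± 0.17 (adjusted p = 2.99e-09) with high-dose zalfermin and 1.36 ± 0.17 (adjusted p = 2.56e-09) in chow vehicle. The Hpd log2 fold changes were 0.59 with low-dose semaglutide, 0.80 with high-dose semaglutide and 0.92 with low-dose zalfermin, of which the low-dose zalfermin value passed (adjusted p = 0.0039) and the high-dose semaglutide value passed (adjusted p = 0.00715). The Hpd level with high-dose zalfermin was above that with low-dose zalfermin by 0.62 ± 0.17 (adjusted p = 0.035) and above that with high-dose semaglutide by 0.75 ± 0.17 (adjusted p = 0.0209). Fah (chr7:84585159-84606722) encodes fumarylacetoacetase, the last enzyme of the route. Levels of Fah were 414, 442 and 487 CPM in DIO-MASH vehicle and 725, 821 and 966 CPM in chow vehicle livers. The Fah values were 598, 650.5 and 736 CPM with the combination and 600.5, 657 and 801 CPM with high-dose zalfermin. For Fah, the CPM were 422, 508 and 793 with low-dose semaglutide, 422, 593 and 702 with high-dose semaglutide and 467, 551 and 706 with low-dose zalfermin. For Fah the chow vehicle, combination and high-dose zalfermin mice cleared the highest DIO-MASH vehicle mouse without exception, whereas the low-dose zalfermin, low-dose semaglutide and high-dose semaglutide ranges overlapped that of vehicle. Against DIO-MASH vehicle, Fah differed on the log2 scale by 0.56 ± 0.09 (adjusted p = 1.32e-05) with the combination, by 0.60 ± 0.09 (adjusted p = 4.08e-06) with high-dose zalfermin and by 0.92 ± 0.09 (adjusted p = 9.79e-12) in chow vehicle. Fah log2 fold changes were 0.25 with low-dose semaglutide, 0.41 with high-dose semaglutide and 0.36 with low-dose zalfermin, of which the high-dose semaglutide value passed (adjusted p = 0.0118). Tat (chr8:109990437-109999803) encodes tyrosine aminotransferase, a classical glucocorticoid-responsive enzyme. Tat was counted at 329.5, 556 and 879.8 CPM in DIO-MASH vehicle livers and at 791, 1070 and 2534 CPM in chow vehicle livers. The Tat values were 520.5, 889.8 and 1477 CPM with the combination and 666, 1186 and 2379 CPM with high-dose zalfermin. For Tat, the CPM were 473, 633 and 1562 with low-dose semaglutide, 312, 631 and 991 with high-dose semaglutide and 439.8, 613 and 1621 with low-dose zalfermin. For Tat, the DIO-MASH vehicle range overlapped those of all 6 other groups. For Tat the log2 fold change was 1.21 ± 0.29 (adjusted p = 3.92e-04) in chow vehicle, 0.71 ± 0.29 (adjusted p = 0.0671) with the combination and 1.14 ± 0.29 (adjusted p = 0.00362) with high-dose zalfermin. Those of Tat were 0.38 with low-dose semaglutide, 0.11 with high-dose semaglutide and 0.44 with low-dose zalfermin, none of which passed the threshold.

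Hgd, named here because its values were seen to exceed those of chow vehicle, stood at 492, 544 and 675 CPM in DIO-MASH vehicle, 592, 753 and 883 CPM in chow vehicle and 718, 908 and 1382 CPM with high-dose zalfermin. It was higher with high-dose zalfermin than in DIO-MASH vehicle by 0.74 ± 0.12 (adjusted p = 4.91e-06) and than in chow vehicle by 0.36 ± 0.12 (adjusted p = 0.0119). Low-dose zalfermin gave 0.53 ± 0.12 (adjusted p = 0.0159) against DIO-MASH vehicle, without overlap of the mice. That Hgd call was lost without low-dose zalfermin mouse 1, where Hpd alone of the genes followed here stayed called. Gstz1 stood at 0.48 ± 0.09 (adjusted p = 1.21e-04) with the combination and 0.57 ± 0.09 (adjusted p = 9.44e-07) in chow vehicle.

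Of 6 tryptophan and kynurenine genes, the number higher than in DIO-MASH vehicle was 6 in chow vehicle, 3 with the combination, 6 with high-dose zalfermin, 0 with low-dose zalfermin and 2 with high-dose semaglutide. On the hepatocyte marker scale there were 1 higher and 3 lower in chow vehicle, 2 higher and 2 lower with the combination and 3 higher and 0 lower with high-dose zalfermin (all genes lower, 92.1%, 74.9% and 51.9%). Tdo2 opens the tryptophan ring, Afmid, Kmo, Kynu and Haao carry the kynurenine route toward quinolinate, and Acmsd diverts it away from NAD synthesis. Tdo2, the first step, was not called with the combination (0.12 ± 0.18, adjusted p = 0.67) and was higher in chow vehicle (0.95 ± 0.19, adjusted p = 2.16e-05) and with high-dose zalfermin (0.59 ± 0.18, adjusted p = 0.0185). Kmo and Kynu also missed the threshold with the combination, at 0.17 ± 0.11 and 0.33 ± 0.18. The 3 later genes that passed are given in full. Afmid (chr11:117825924-117839908) encodes arylformamidase, which makes kynurenine. Levels of Afmid were 11.2, 15.7 and 21.6 CPM in DIO-MASH vehicle and 45.01, 56.4 and 78.8 CPM in chow vehicle livers. The Afmid values were 21.3, 38.5 and 55.2 CPM with the combination and 26.99, 38.1 and 55.2 CPM with high-dose zalfermin. For Afmid, the CPM were 16.7, 18.9 and 45.04 with low-dose semaglutide, 18.4, 27.1 and 40.9 with high-dose semaglutide and 19.96, 23.3 and 46.6 with low-dose zalfermin. Afmid was higher in all chow vehicle and high-dose zalfermin mice than in any DIO-MASH vehicle mouse, whereas the combination, low-dose zalfermin, low-dose semaglutide and high-dose semaglutide ranges overlapped that of vehicle. Afmid had a log2 fold change of 1.20 ± 0.19 (adjusted p = 4.31e-06) with the combination, 1.26 ± 0.19 (adjusted p = 2.20e-06) with high-dose zalfermin and 1.85 ± 0.19 (adjusted p = 1.53e-11) in chow vehicle. The Afmid log2 fold changes were 0.49 with low-dose semaglutide, 0.81 with high-dose semaglutide and 0.70 with low-dose zalfermin, of which the high-dose semaglutide value passed (adjusted p = 0.0145, lost in 2 of 30 alternatives at up to 0.058). Acmsd (chr1:127729413-127767978) encodes the decarboxylase that turns the route away from NAD. Acmsd was counted at 6.4, 9.98 and 17.8 CPM in DIO-MASH vehicle livers and at 11.9, 22.3 and 48 CPM in chow vehicle livers. The Acmsd values were 11.5, 22.8 and 45.98 CPM with the combination and 17.6, 26.1 and 51.7 CPM with high-dose zalfermin. For Acmsd, the CPM were 7.59, 13.4 and 21.5 with low-dose semaglutide, 7.4, 12.3 and 16.98 with high-dose semaglutide and 16.7, 20.9 and 31.6 with low-dose zalfermin. For Acmsd, the DIO-MASH vehicle range overlapped those of all 6 other groups. Against DIO-MASH vehicle, Acmsd differed on the log2 scale by 1.14 ± 0.25 (adjusted p = 6.60e-04) with the combination, by 1.35 ± 0.25 (adjusted p = 7.08e-05) with high-dose zalfermin and by 1.16 ± 0.25 (adjusted p = 9.64e-05) in chow vehicle. Acmsd log2 fold changes were 0.30 with low-dose semaglutide, 0.13 with high-dose semaglutide and 0.96 with low-dose zalfermin, none of which passed the threshold. Acmsd was higher with the combination than with high-dose semaglutide by 1.01 ± 0.25 (adjusted p = 0.0175). Haao (chr17:83831156-83847963) encodes 3-hydroxyanthranilate dioxygenase. Levels of Haao were 267, 309.8 and 378 CPM in DIO-MASH vehicle and 518, 606 and 818 CPM in chow vehicle livers. The Haao values were 449.8, 509.9 and 581 CPM with the combination and 411, 535 and 596 CPM with high-dose zalfermin. For Haao, the CPM were 278, 369.9 and 586 with low-dose semaglutide, 287, 465 and 530.1 with high-dose semaglutide and 297, 384 and 537 with low-dose zalfermin. In Haao, no chow vehicle, combination or high-dose zalfermin mouse fell within the DIO-MASH vehicle range, whereas the low-dose zalfermin, low-dose semaglutide and high-dose semaglutide ranges overlapped that of vehicle. For Haao the log2 fold change was 1.03 ± 0.12 (adjusted p = 5.66e-10) in chow vehicle, 0.71 ± 0.12 (adjusted p = 1.80e-05) with the combination and 0.75 ± 0.12 (adjusted p = 7.03e-06) with high-dose zalfermin. Those of Haao were 0.32 with low-dose semaglutide, 0.52 with high-dose semaglutide and 0.35 with low-dose zalfermin, of which the high-dose semaglutide value passed (adjusted p = 0.0145, lost in 1 of 30 alternatives at up to 0.051).

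Of 6 serine, glycine and glyoxylate genes, the number higher than in DIO-MASH vehicle was 5 in chow vehicle, 2 with the combination, 3 with high-dose zalfermin, 1 with low-dose zalfermin and 2 with high-dose semaglutide. Scaled to hepatocyte markers, the calls were 1 higher and 3 lower in chow vehicle, 1 higher and 1 lower with the combination and 3 higher and 0 lower with high-dose zalfermin (all genes lower, 92.1%, 74.9% and 51.9%). Sds and Sdsl deaminate serine, Shmt1 exchanges serine and glycine, Gldc and Amt belong to the glycine cleavage system, and Agxt removes glyoxylate in peroxisomes. Gldc was the gene of all 53 that was not called in chow vehicle (0.62 ± 0.29, adjusted p = 0.0623), and neither Gldc nor Amt was called in any treated group. Agxt (chr1:93135240-93145421) encodes alanine-glyoxylate aminotransferase. Agxt was counted at 64.8, 79.6 and 96.1 CPM in DIO-MASH vehicle livers and at 238, 394 and 515 CPM in chow vehicle livers. The Agxt values were 116, 170.4 and 251 CPM with the combination and 119, 216 and 318 CPM with high-dose zalfermin. For Agxt, the CPM were 78.2, 113 and 359.8 with low-dose semaglutide, 67.3, 149 and 181 with high-dose semaglutide and 108, 124 and 256 with low-dose zalfermin. Agxt was higher in all chow vehicle, combination, high-dose zalfermin and low-dose zalfermin mice than in any DIO-MASH vehicle mouse, whereas the low-dose semaglutide and high-dose semaglutide ranges overlapped that of vehicle. Agxt had a log2 fold change of 1.12 ± 0.23 (adjusted p = 2.46e-04) with the combination, 1.42 ± 0.23 (adjusted p = 7.26e-06) with high-dose zalfermin and 2.26 ± 0.23 (adjusted p = 1.73e-11) in chow vehicle. The Agxt log2 fold changes were 0.81 with low-dose semaglutide, 0.81 with high-dose semaglutide and 0.80 with low-dose zalfermin, of which the high-dose semaglutide value passed (adjusted p = 0.0367, lost in 9 of 30 alternatives at up to 0.111). Shmt1 (chr11:60788104-60811718) encodes cytosolic serine hydroxymethyltransferase. Levels of Shmt1 were 103, 110.3 and 132 CPM in DIO-MASH vehicle and 157, 174 and 193 CPM in chow vehicle livers. The Shmt1 values were 134, 176 and 229 CPM with the combination and 174, 195 and 259.8 CPM with high-dose zalfermin. For Shmt1, the CPM were 108, 134 and 203 with low-dose semaglutide, 123, 162 and 173 with high-dose semaglutide and 136, 142 and 202 with low-dose zalfermin. For Shmt1 the chow vehicle, combination, high-dose zalfermin and low-dose zalfermin mice cleared the highest DIO-MASH vehicle mouse without exception, whereas the low-dose semaglutide and high-dose semaglutide ranges overlapped that of vehicle. Against DIO-MASH vehicle, Shmt1 differed on the log2 scale by 0.63 ± 0.10 (adjusted p = 8.37e-06) with the combination, by 0.81 ± 0.10 (adjusted p = 7.59e-08) with high-dose zalfermin and by 0.59 ± 0.10 (adjusted p = 2.78e-06) in chow vehicle. Shmt1 log2 fold changes were 0.27 with low-dose semaglutide, 0.44 with high-dose semaglutide and 0.41 with low-dose zalfermin, of which the low-dose zalfermin value passed (adjusted p = 0.0429, lost in 23 of 30 alternatives at up to 0.211) and the high-dose semaglutide value passed (adjusted p = 0.0148).

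Sds and Sdsl catalyse the same reaction. Sds (chr5:120476526-120483932) encodes serine dehydratase, which feeds serine carbon to pyruvate. Sds was counted at 49, 99.2 and 174 CPM in DIO-MASH vehicle livers and at 136, 192 and 403 CPM in chow vehicle livers. The Sds values were 58.7, 121 and 239 CPM with the combination and 101, 215 and 462 CPM with high-dose zalfermin. For Sds, the CPM were 46.5, 122 and 352 with low-dose semaglutide, 52.4, 149.9 and 193 with high-dose semaglutide and 93.6, 125 and 286 with low-dose zalfermin. For Sds, the DIO-MASH vehicle range overlapped those of all 6 other groups. For Sds the log2 fold change was 1.17 ± 0.32 (adjusted p = 0.00188) in chow vehicle, 0.47 ± 0.32 (adjusted p = 0.301) with the combination and 1.28 ± 0.32 (adjusted p = 0.00353) with high-dose zalfermin. Those of Sds were 0.57 with low-dose semaglutide, 0.34 with high-dose semaglutide and 0.62 with low-dose zalfermin, none of which passed the threshold. Sdsl (chr5:120458186-120472810) encodes the serine dehydratase-like enzyme. Levels of Sdsl were 7.04, 8.43 and 14.7 CPM in DIO-MASH vehicle and 13.2, 22.9 and 28.3 CPM in chow vehicle livers. The Sdsl values were 7.25, 11.1 and 20.1 CPM with the combination and 8.25, 12.5 and 19 CPM with high-dose zalfermin. For Sdsl, the CPM were 6.73, 9.09 and 16.3 with low-dose semaglutide, 4.16, 10.6 and 12.8 with high-dose semaglutide and 5.05, 9.34 and 15.1 with low-dose zalfermin. For Sdsl, the DIO-MASH vehicle range overlapped those of all 6 other groups. Sdsl had a log2 fold change of 0.45 ± 0.21 (adjusted p = 0.114) with the combination, 0.54 ± 0.21 (adjusted p = 0.0674) with high-dose zalfermin and 1.19 ± 0.21 (adjusted p = 3.42e-06) in chow vehicle. The Sdsl log2 fold changes were 0.18 with low-dose semaglutide, 0.07 with high-dose semaglutide and 0.07 with low-dose zalfermin, none of which passed the threshold. Sds passed in chow vehicle and with high-dose zalfermin and Sdsl in chow vehicle only among the 6 comparisons.

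Of 4 histidine catabolism genes, the number higher than in DIO-MASH vehicle was 4 in chow vehicle, 3 with the combination, 4 with high-dose zalfermin, 0 with low-dose zalfermin and 0 with high-dose semaglutide. On the hepatocyte marker scale there were 1 higher and 2 lower in chow vehicle, 0 higher and 1 lower with the combination and 1 higher and 0 lower with high-dose zalfermin (all genes lower, 92.1%, 74.9% and 51.9%). Hal, Uroc1, Amdhd1 and Ftcd act in this order to give glutamate and a one-carbon unit. Uroc1 (chr6:90333284-90364551) encodes urocanate hydratase. Uroc1 was counted at 222, 266 and 351 CPM in DIO-MASH vehicle livers and at 454, 573 and 625 CPM in chow vehicle livers. The Uroc1 values were 314, 446 and 573 CPM with the combination and 357, 441 and 515 CPM with high-dose zalfermin. For Uroc1, the CPM were 236, 348 and 603 with low-dose semaglutide, 225, 344 and 437 with high-dose semaglutide and 287, 361 and 512 with low-dose zalfermin. For Uroc1 the chow vehicle and high-dose zalfermin mice cleared the highest DIO-MASH vehicle mouse without exception, whereas the combination, low-dose zalfermin, low-dose semaglutide and high-dose semaglutide ranges overlapped that of vehicle. Against DIO-MASH vehicle, Uroc1 differed on the log2 scale by 0.70 ± 0.15 (adjusted p = 3.64e-04) with the combination, by 0.64 ± 0.15 (adjusted p = 0.00103) with high-dose zalfermin and by 1.01 ± 0.15 (adjusted p = 7.62e-08) in chow vehicle. Uroc1 log2 fold changes were 0.40 with low-dose semaglutide, 0.30 with high-dose semaglutide and 0.46 with low-dose zalfermin, none of which passed the threshold. Amdhd1 (chr10:93523338-93540033) encodes imidazolonepropionase. Levels of Amdhd1 were 83, 112 and 145 CPM in DIO-MASH vehicle and 132, 332 and 456 CPM in chow vehicle livers. The Amdhd1 values were 110.1, 151 and 304 CPM with the combination and 107, 195 and 294 CPM with high-dose zalfermin. For Amdhd1, the CPM were 82.4, 137 and 279 with low-dose semaglutide, 86.4, 144 and 171 with high-dose semaglutide and 121, 148 and 200.1 with low-dose zalfermin. For Amdhd1, the DIO-MASH vehicle range overlapped those of all 6 other groups. For Amdhd1 the log2 fold change was 1.52 ± 0.21 (adjusted p = 3.82e-08) in chow vehicle, 0.56 ± 0.21 (adjusted p = 0.0485, lost in 11 of 30 alternatives at up to 0.203) with the combination and 0.78 ± 0.21 (adjusted p = 0.006) with high-dose zalfermin. Those of Amdhd1 were 0.35 with low-dose semaglutide, 0.27 with high-dose semaglutide and 0.45 with low-dose zalfermin, none of which passed the threshold. Hal (chr10:93488768-93519304) encodes histidine ammonia-lyase, the first enzyme of the route. Hal was counted at 63.7, 134 and 210.2 CPM in DIO-MASH vehicle livers and at 214, 608 and 889.6 CPM in chow vehicle livers. The Hal values were 126, 231 and 441 CPM with the combination and 192, 309 and 651 CPM with high-dose zalfermin. For Hal, the CPM were 49.6, 194 and 584 with low-dose semaglutide, 64.3, 183 and 316 with high-dose semaglutide and 147, 218 and 448 with low-dose zalfermin. Hal was higher in each chow vehicle mouse than in any DIO-MASH vehicle mouse, whereas the combination, high-dose zalfermin, low-dose zalfermin, low-dose semaglutide and high-dose semaglutide ranges overlapped that of vehicle. Hal had a log2 fold change of 0.80 ± 0.35 (adjusted p = 0.0911) with the combination, 1.36 ± 0.35 (adjusted p = 0.00422) with high-dose zalfermin and 2.13 ± 0.36 (adjusted p = 1.80e-06) in chow vehicle. The Hal log2 fold changes were 0.62 with low-dose semaglutide, 0.37 with high-dose semaglutide and 0.83 with low-dose zalfermin, none of which passed the threshold. Hal had within-group coefficients of variation among the widest of the 53 genes, 80.1% with low-dose semaglutide and 48.2% with high-dose semaglutide. Ftcd stood at 0.31 ± 0.12 (adjusted p = 0.0492) with the combination and 0.94 ± 0.12 (adjusted p = 2.39e-09) in chow vehicle.

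Of 11 genes of methionine, betaine, transsulfuration and taurine metabolism, the number higher than in DIO-MASH vehicle was 11 in chow vehicle, 8 with the combination, 9 with high-dose zalfermin, 4 with low-dose zalfermin and 3 with high-dose semaglutide, and Csad was lower with high-dose zalfermin. Scaled to hepatocyte markers, the calls were 3 higher and 2 lower in chow vehicle, 2 higher and 4 lower with the combination and 6 higher and 1 lower with high-dose zalfermin (all genes lower, 92.1%, 74.9% and 51.9%). Mat1a makes S-adenosylmethionine, Gnmt spends it on glycine, Ahcy clears the product, Bhmt and Bhmt2 remethylate homocysteine, Cbs and Cth turn it into cysteine, Dmgdh and Sardh demethylate the products of betaine, and Cdo1 and Csad lead from cysteine toward taurine. In chow vehicle the set summed to 13125, 18479 and 21501 CPM against 6524, 7295 and 7577 CPM in DIO-MASH vehicle, and with the combination to 10945, 11674 and 13627 CPM. These 3 ranges show DIO-MASH vehicle below the other groups and the highest combination mouse above 1 chow vehicle mouse.

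Gnmt (chr17:46725664-46729168) encodes glycine N-methyltransferase. Levels of Gnmt were 518, 631 and 873 CPM in DIO-MASH vehicle and 2726, 3451 and 4603 CPM in chow vehicle livers. The Gnmt values were 1507, 1776 and 2284 CPM with the combination and 1381, 1773 and 2268 CPM with high-dose zalfermin. For Gnmt, the CPM were 639, 866 and 1984 with low-dose semaglutide, 473, 1147 and 1519 with high-dose semaglutide and 744, 1106 and 1829 with low-dose zalfermin. For Gnmt the chow vehicle, combination and high-dose zalfermin mice cleared the highest DIO-MASH vehicle mouse without exception, whereas the low-dose zalfermin, low-dose semaglutide and high-dose semaglutide ranges overlapped that of vehicle. Against DIO-MASH vehicle, Gnmt differed on the log2 scale by 1.48 ± 0.18 (adjusted p = 4.87e-08) with the combination, by 1.48 ± 0.18 (adjusted p = 5.28e-08) with high-dose zalfermin and by 2.41 ± 0.19 (adjusted p = 1.41e-14) in chow vehicle. Gnmt log2 fold changes were 0.65 with low-dose semaglutide, 0.78 with high-dose semaglutide and 0.83 with low-dose zalfermin, of which the low-dose zalfermin value passed (adjusted p = 0.0165, lost in 2 of 30 alternatives at up to 0.125) and the high-dose semaglutide value passed (adjusted p = 0.0145, lost in 1 of 30 alternatives at up to 0.0512). Gnmt was higher with the combination than with low-dose zalfermin (0.64 ± 0.18, adjusted p = 0.0208) and than with high-dose semaglutide (0.69 ± 0.18, adjusted p = 0.0279), and lower than in chow vehicle (-0.94 ± 0.18, adjusted p = 7.29e-05). Ahcy (chr2:155059310-155074497) encodes adenosylhomocysteinase. Ahcy was counted at 221, 257 and 372 CPM in DIO-MASH vehicle livers and at 703, 857 and 996 CPM in chow vehicle livers. The Ahcy values were 501, 554 and 955 CPM with the combination and 482, 541 and 761 CPM with high-dose zalfermin. For Ahcy, the CPM were 270.4, 324 and 642 with low-dose semaglutide, 244, 368 and 598 with high-dose semaglutide and 304, 377 and 615 with low-dose zalfermin. In Ahcy, no chow vehicle, combination or high-dose zalfermin mouse fell within the DIO-MASH vehicle range, whereas the low-dose zalfermin, low-dose semaglutide and high-dose semaglutide ranges overlapped that of vehicle. For Ahcy the log2 fold change was 1.67 ± 0.16 (adjusted p = 1.87e-12) in chow vehicle, 1.21 ± 0.16 (adjusted p = 9.89e-08) with the combination and 1.09 ± 0.16 (adjusted p = 1.03e-06) with high-dose zalfermin. Those of Ahcy were 0.41 with low-dose semaglutide, 0.60 with high-dose semaglutide and 0.54 with low-dose zalfermin, of which the high-dose semaglutide value passed (adjusted p = 0.025, lost in 5 of 30 alternatives at up to 0.113). The Ahcy value with the combination was above that with low-dose zalfermin by 0.67 ± 0.16 (adjusted p = 0.00423). Cth (chr3:157894248-157925077) encodes cystathionine gamma-lyase, which releases cysteine. Levels of Cth were 106, 121 and 136 CPM in DIO-MASH vehicle and 220.4, 549.7 and 645 CPM in chow vehicle livers. The Cth values were 154, 222 and 309 CPM with the combination and 194, 253 and 387 CPM with high-dose zalfermin. For Cth, the CPM were 102, 135 and 353 with low-dose semaglutide, 93.6, 146 and 194 with high-dose semaglutide and 163, 199 and 302 with low-dose zalfermin. Cth was higher in all chow vehicle, combination, high-dose zalfermin and low-dose zalfermin mice than in any DIO-MASH vehicle mouse, whereas the low-dose semaglutide and high-dose semaglutide ranges overlapped that of vehicle. Cth had a log2 fold change of 0.90 ± 0.19 (adjusted p = 3.58e-04) with the combination, 1.15 ± 0.19 (adjusted p = 1.03e-05) with high-dose zalfermin and 2.12 ± 0.19 (adjusted p = 5.61e-13) in chow vehicle. The Cth log2 fold changes were 0.43 with low-dose semaglutide, 0.34 with high-dose semaglutide and 0.79 with low-dose zalfermin, of which the low-dose zalfermin value passed (adjusted p = 0.0339, lost in 11 of 30 alternatives at up to 0.175). With the combination Cth was below chow vehicle (log2 difference -1.22 ± 0.19, adjusted p = 1.89e-06).

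Betaine-homocysteine methyltransferases are encoded by Bhmt and Bhmt2. Bhmt (chr13:93616675-93637961) encodes the enzyme that remethylates homocysteine with betaine. Bhmt was counted at 413, 705 and 889.5 CPM in DIO-MASH vehicle livers and at 323, 1376 and 2161 CPM in chow vehicle livers. The Bhmt values were 219.6, 407 and 1218 CPM with the combination and 508, 724 and 1120 CPM with high-dose zalfermin. For Bhmt, the CPM were 483, 718 and 1267 with low-dose semaglutide, 484, 631 and 804 with high-dose semaglutide and 545, 808 and 1190 with low-dose zalfermin. For Bhmt, the DIO-MASH vehicle range overlapped those of all 6 other groups. Against DIO-MASH vehicle, Bhmt differed on the log2 scale by -0.42 ± 0.25 (adjusted p = 0.24) with the combination, by 0.13 ± 0.25 (adjusted p = 0.775) with high-dose zalfermin and by 1.03 ± 0.26 (adjusted p = 5.87e-04) in chow vehicle. Bhmt log2 fold changes were 0.09 with low-dose semaglutide, -0.09 with high-dose semaglutide and 0.26 with low-dose zalfermin, none of which passed the threshold. Bhmt was lower with the combination than in chow vehicle (log2 difference -1.45 ± 0.26, adjusted p = 1.99e-05) and had its widest spread with the combination, a coefficient of variation of 65.7%. Bhmt2 (chr13:93655720-93674302) encodes a paralog that uses S-methylmethionine. Levels of Bhmt2 were 151, 177 and 201 CPM in DIO-MASH vehicle and 218, 246 and 292 CPM in chow vehicle livers. The Bhmt2 values were 174, 212 and 252 CPM with the combination and 213, 238 and 285 CPM with high-dose zalfermin. For Bhmt2, the CPM were 161, 180.3 and 233 with low-dose semaglutide, 169, 198 and 250.1 with high-dose semaglutide and 182, 208 and 240.2 with low-dose zalfermin. In Bhmt2, no chow vehicle or high-dose zalfermin mouse fell within the DIO-MASH vehicle range, whereas the combination, low-dose zalfermin, low-dose semaglutide and high-dose semaglutide ranges overlapped that of vehicle. For Bhmt2 the log2 fold change was 0.51 ± 0.09 (adjusted p = 1.63e-06) in chow vehicle, 0.29 ± 0.09 (adjusted p = 0.0101) with the combination and 0.44 ± 0.09 (adjusted p = 1.35e-04) with high-dose zalfermin. Those of Bhmt2 were 0.08 with low-dose semaglutide, 0.22 with high-dose semaglutide and 0.26 with low-dose zalfermin, none of which passed the threshold.

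Csad (chr15:102176999-102204724), the decarboxylase that makes hypotaurine, is described in full after its values were seen. Csad was counted at 177, 227 and 403 CPM in DIO-MASH vehicle livers and at 173, 629 and 1277 CPM in chow vehicle livers. The Csad values were 119, 184 and 403 CPM with the combination and 53.8, 145 and 176 CPM with high-dose zalfermin. For Csad, the CPM were 134, 313 and 505 with low-dose semaglutide, 161, 276 and 513 with high-dose semaglutide and 132, 200.2 and 362 with low-dose zalfermin. Every high-dose zalfermin mouse lay below all DIO-MASH vehicle mice for Csad, whereas the chow vehicle, combination, low-dose zalfermin, low-dose semaglutide and high-dose semaglutide ranges overlapped that of vehicle. The margin was narrow, with the highest high-dose zalfermin mouse at 176.4 CPM and the lowest DIO-MASH vehicle mouse at 176.8 CPM. Csad had a log2 fold change of -0.30 ± 0.29 (adjusted p = 0.484) with the combination, -0.87 ± 0.29 (adjusted p = 0.0286) with high-dose zalfermin and 1.37 ± 0.29 (adjusted p = 8.18e-05) in chow vehicle. The Csad log2 fold changes were 0.27 with low-dose semaglutide, 0.25 with high-dose semaglutide and -0.16 with low-dose zalfermin, none of which passed the threshold. In high-dose zalfermin mice Csad was below chow vehicle (log2 difference -2.23 ± 0.30, adjusted p = 9.87e-08). Cdo1, the step before it, was higher with high-dose zalfermin (0.73 ± 0.15, adjusted p = 3.27e-04) and higher with the high than the low dose (0.54 ± 0.15, adjusted p = 0.0459). Mat1a stood at 0.82 ± 0.12 (adjusted p = 4.12e-07) with the combination and 0.51 ± 0.11 (adjusted p = 0.0113) with high-dose semaglutide, and Sardh, Cbs and Dmgdh at 0.70 ± 0.13, 0.75 ± 0.24 and 0.29 ± 0.13 with the combination, of which Dmgdh was not called.

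Lysine and branched-chain genes had the smallest median in chow vehicle, 0.55, of the 9 pathway sets. On the hepatocyte marker scale there were 0 higher and 3 lower in chow vehicle, 0 higher and 2 lower with the combination and 0 higher and 0 lower with high-dose zalfermin (all genes lower, 92.1%, 74.9% and 51.9%). Aass stands for the lysine route, and Bckdha and Bckdhb are the E1 subunits of the branched-chain ketoacid dehydrogenase. Aass (chr6:23072173-23132986) encodes the bifunctional enzyme that starts lysine breakdown. Levels of Aass were 170.1, 194 and 228 CPM in DIO-MASH vehicle and 273, 365 and 492 CPM in chow vehicle livers. The Aass values were 252, 305 and 417 CPM with the combination and 280.5, 332 and 425 CPM with high-dose zalfermin. For Aass, the CPM were 163, 219 and 371 with low-dose semaglutide, 192, 265 and 348 with high-dose semaglutide and 219.5, 284 and 395 with low-dose zalfermin. For Aass the chow vehicle, combination and high-dose zalfermin mice cleared the highest DIO-MASH vehicle mouse without exception, whereas the low-dose zalfermin, low-dose semaglutide and high-dose semaglutide ranges overlapped that of vehicle. Against DIO-MASH vehicle, Aass differed on the log2 scale by 0.66 ± 0.13 (adjusted p = 2.88e-04) with the combination, by 0.76 ± 0.14 (adjusted p = 3.76e-05) with high-dose zalfermin and by 0.88 ± 0.14 (adjusted p = 2.77e-07) in chow vehicle. Aass log2 fold changes were 0.22 with low-dose semaglutide, 0.38 with high-dose semaglutide and 0.51 with low-dose zalfermin, none of which passed the threshold. Bckdhb (chr9:83925145-84124240) encodes the E1 beta subunit. Bckdhb was counted at 72.1, 76.1 and 79.4 CPM in DIO-MASH vehicle livers and at 88.7, 96.3 and 133 CPM in chow vehicle livers. The Bckdhb values were 87.3, 97 and 112 CPM with the combination and 78.5, 91.8 and 121 CPM with high-dose zalfermin. For Bckdhb, the CPM were 73.8, 79.3 and 104 with low-dose semaglutide, 75.7, 88.8 and 92.9 with high-dose semaglutide and 78.8, 84.6 and 95.1 with low-dose zalfermin. In Bckdhb, no chow vehicle or combination mouse fell within the DIO-MASH vehicle range, whereas the high-dose zalfermin, low-dose zalfermin, low-dose semaglutide and high-dose semaglutide ranges overlapped that of vehicle. For Bckdhb the log2 fold change was 0.43 ± 0.07 (adjusted p = 3.61e-06) in chow vehicle, 0.38 ± 0.07 (adjusted p = 1.90e-04) with the combination and 0.30 ± 0.07 (adjusted p = 0.00252) with high-dose zalfermin. Those of Bckdhb were 0.10 with low-dose semaglutide, 0.19 with high-dose semaglutide and 0.16 with low-dose zalfermin, none of which passed the threshold. Bckdha (chr7:25629946-25658981) encodes the E1 alpha subunit. Levels of Bckdha were 205, 217 and 234 CPM in DIO-MASH vehicle and 284, 314 and 396 CPM in chow vehicle livers. The Bckdha values were 198, 245 and 287 CPM with the combination and 226, 259.9 and 283 CPM with high-dose zalfermin. For Bckdha, the CPM were 202, 235 and 299 with low-dose semaglutide, 201, 257 and 296 with high-dose semaglutide and 202, 246 and 298 with low-dose zalfermin. Bckdha was higher in each chow vehicle mouse than in any DIO-MASH vehicle mouse, whereas the combination, high-dose zalfermin, low-dose zalfermin, low-dose semaglutide and high-dose semaglutide ranges overlapped that of vehicle. Bckdha had a log2 fold change of 0.19 ± 0.08 (adjusted p = 0.0868) with the combination, 0.22 ± 0.08 (adjusted p = 0.0541) with high-dose zalfermin and 0.54 ± 0.08 (adjusted p = 2.73e-07) in chow vehicle. The Bckdha log2 fold changes were 0.10 with low-dose semaglutide, 0.21 with high-dose semaglutide and 0.14 with low-dose zalfermin, none of which passed the threshold.

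**Figure D4:**
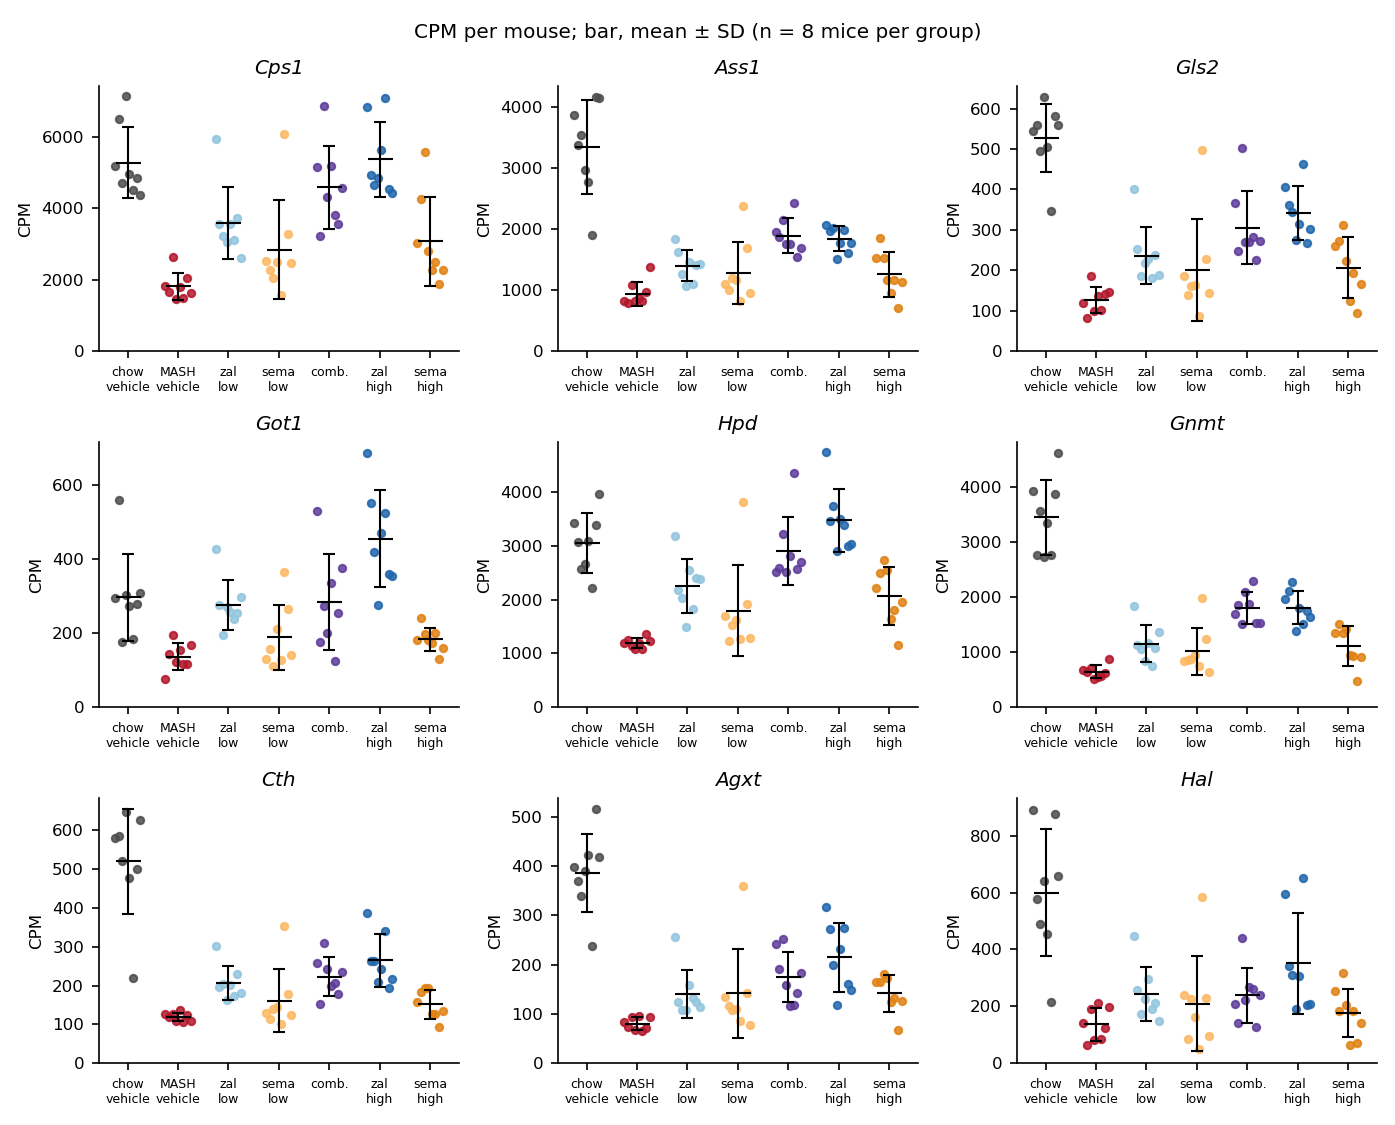
CPM per mouse (points) of Cps1, Ass1, Gls2, Got1, Hpd, Gnmt, Cth, Agxt and Hal in the 7 groups, with mean ± SD (bars, n = 8), on linear axes from 0. Combination and high-dose zalfermin mice lie above DIO-MASH vehicle mice for Cps1, Ass1, Gls2, Hpd, Gnmt, Cth and Agxt, and 1 low-dose semaglutide mouse stands near the chow vehicle mice for most of these genes.

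**Figure D5:**
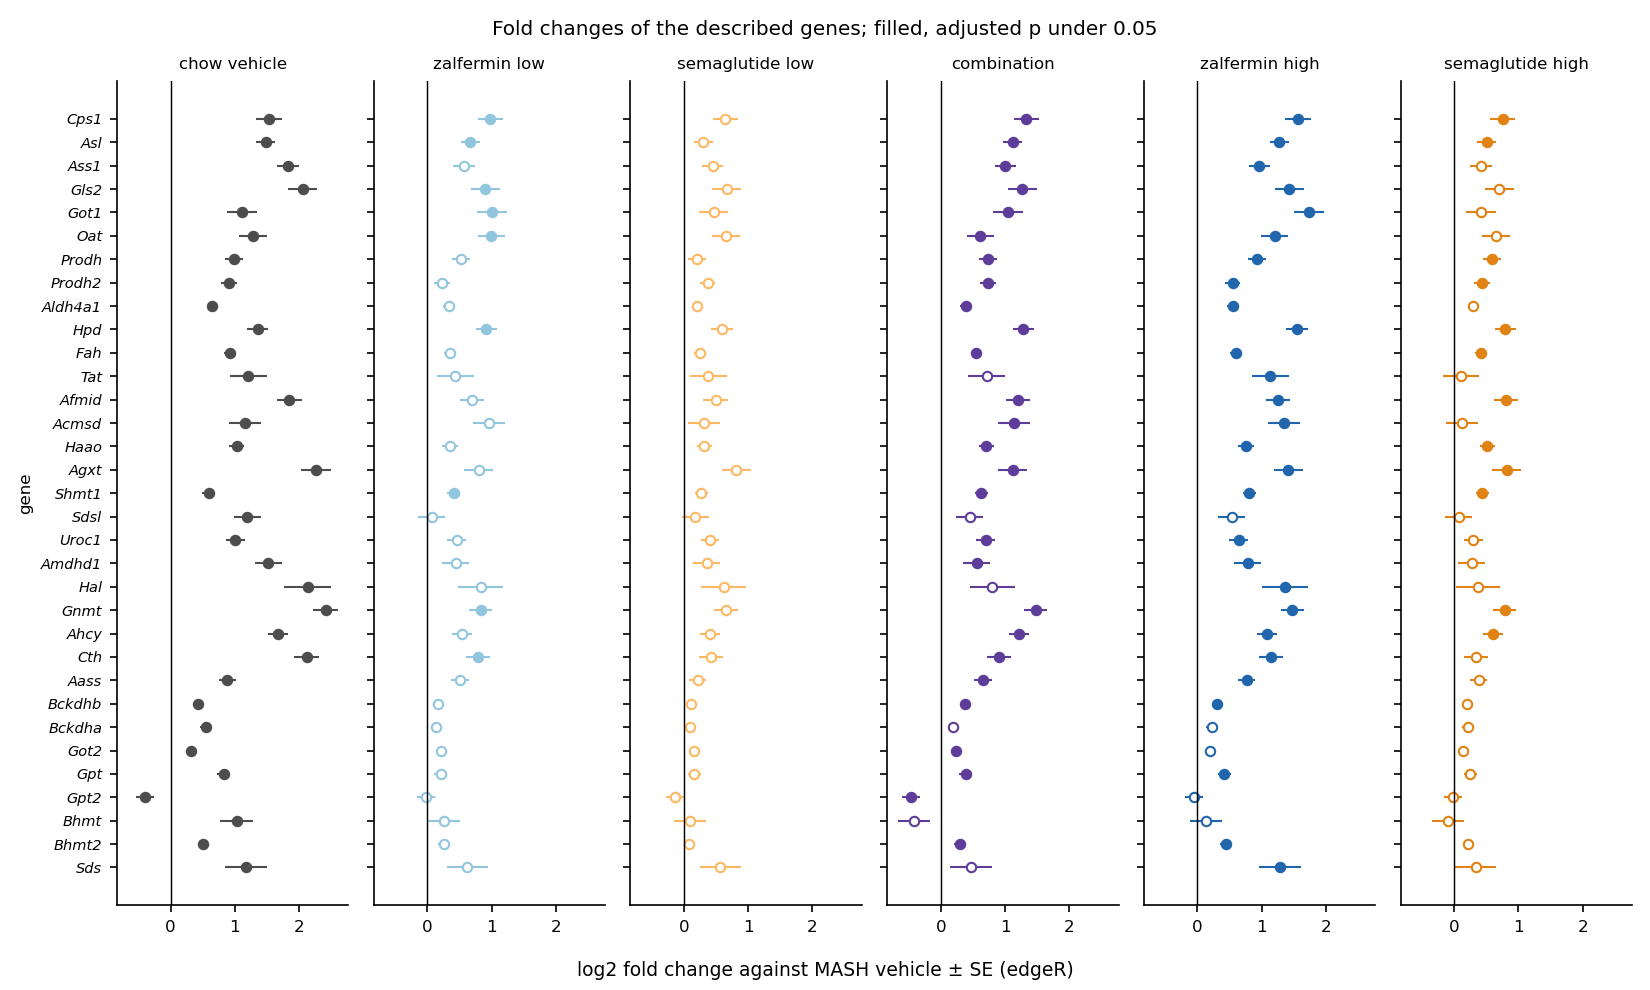
Log2 fold change against DIO-MASH vehicle (horizontal axis, edgeR, bars ± SE) of the 33 genes described in full by rule, in chow vehicle and the 5 treated groups (panels). Filled points passed an adjusted p of 0.05, and none did with low-dose semaglutide.

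Head-to-head comparisons asked whether the combination differed from its components and from the high doses. The combination had 17 of 53 genes higher than low-dose semaglutide and none lower (all genes, 4.21% called), among them Asl (0.82 ± 0.15, adjusted p = 3.80e-04), Gnmt (0.82 ± 0.18, adjusted p = 0.00399) and Ahcy (0.81 ± 0.16, adjusted p = 8.59e-04). Against low-dose zalfermin, 4 were higher and 1 was lower (all genes, 6.62% called): Nags (0.34 ± 0.10, adjusted p = 0.0246), Prodh2, Gnmt and Ahcy were higher and Gpt2 was lower. Against high-dose semaglutide, 5 were higher and none lower (all genes, 1.89% called), namely Ass1 (0.59 ± 0.17, adjusted p = 0.0466), Asl (0.61 ± 0.15, adjusted p = 0.0158), Acmsd, Gnmt and Ahcy. No gene of the 53 was called between the combination and high-dose zalfermin by edgeR or by DESeq2, with 7 at an unadjusted p under 0.05 (all genes, 0.503% called), and the median difference was -0.13. These counts rest on single mice. Against low-dose semaglutide the count was 31 without mouse 6 of that group, 9 without mouse 1, 2, 3, 4, 5 or 8 of it, 11 without combination mouse 1 or 3, 10 without combination mouse 6 and 7 without combination mouse 5. Against low-dose zalfermin it was 10 without low-dose zalfermin mouse 1 or low-dose semaglutide mouse 6, 8 without combination mouse 8, and 3 without low-dose zalfermin mouse 2 or 4 or combination mouse 5. Against high-dose semaglutide it was 0 without high-dose semaglutide mouse 7 or combination mouse 6, 2 without high-dose semaglutide mouse 6 or 8 or combination mouse 5, and 3 without high-dose semaglutide mouse 5 or combination mouse 4.

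High-dose zalfermin gave 5 genes higher than low-dose zalfermin and none lower (all genes, 1.84% called), namely Asl (0.60 ± 0.15, adjusted p = 0.0194), Hpd, Shmt1 (0.40 ± 0.10, adjusted p = 0.0274), Gnmt and Cdo1. The count was 12 without low-dose zalfermin mouse 1, 0 without mouse 4 of that group and 1 to 3 without mouse 2, 3, 5, 6 or 7 of it, without high-dose zalfermin mouse 1, 2, 3, 5, 6 or 8, or without low-dose semaglutide mouse 1, 2, 3 or 4. High-dose zalfermin gave 7 genes higher than high-dose semaglutide and none lower (all genes, 0.447% called), among them Got1, Cps1 (0.80 ± 0.20, adjusted p = 0.0398), Acmsd (1.22 ± 0.25, adjusted p = 0.00659) and Cth (0.81 ± 0.19, adjusted p = 0.0273). That count was 12 without low-dose semaglutide mouse 6, 11 without high-dose semaglutide mouse 3, 4 without high-dose zalfermin mouse 6 or high-dose semaglutide mouse 5, and 3 without high-dose zalfermin mouse 1 or high-dose semaglutide mouse 6, 7 or 8. The doses of the compounds differ in kind, so this sets regimens side by side and not molecules at matched doses. Between the semaglutide doses, and between the low doses of both compounds, edgeR and DESeq2 called none of the 53 genes, with 2 and 10 at an unadjusted p under 0.05 and 0% and 0% of all genes called by edgeR.

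Departure of the combination from the sum of its components was tested as an interaction on the log2 scale (the combination against DIO-MASH vehicle, less the effects of both low doses given alone). None of the 53 genes was called by edgeR or by DESeq2 (all genes, 0.0142% called), and 3 had an unadjusted p under 0.05. These were Oat (-1.03 ± 0.30, adjusted p = 0.36), Hgd (-0.35 ± 0.16, adjusted p = 0.704) and Bhmt (-0.77 ± 0.36, adjusted p = 0.704), all below the sum. The median over the 53 genes was -0.12, and 14 values were positive and 39 negative. Leaving out 1 mouse at a time gave 0 calls. Both low-dose groups enter with a minus sign, and each holds a mouse that stood above its group. Without low-dose semaglutide mouse 6 the median log2 CPM difference of that group from DIO-MASH vehicle was 0.14 in place of 0.24. For low-dose zalfermin without mouse 1 it was 0.34 in place of 0.39. What part these mice have in the negative values was not tested.

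Each treated group was also set against chow vehicle. The number of genes called lower than chow vehicle was 49 of 53 with high-dose semaglutide (all genes, 18.6% lower), 43 with low-dose semaglutide (21.3%), 39 with low-dose zalfermin (22.5%), 28 with the combination (15.0%) and 21 with high-dose zalfermin (17.6%). Got1, Gpt2 and Hgd were higher than chow vehicle with high-dose zalfermin. Gpt2 was also the 1 gene called higher than chow vehicle with low-dose zalfermin and with high-dose semaglutide. With the combination, 9 of 11 methionine and related genes and 3 of 4 histidine genes were lower than chow vehicle, against 4 of 8 urea cycle genes and 1 of 5 tyrosine genes. With high-dose zalfermin these counts were 7 of 11, 3 of 4, 3 of 8 and 1 of 5. Differences between the pathway counts were not tested.

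Per kilobase of annotated exon, the most abundant of the 53 genes in DIO-MASH vehicle livers were Mat1a (719.5 CPM per kb), Cdo1 (670.2 CPM per kb), Hpd (559.7 CPM per kb) and Gnmt (536 CPM per kb), and the least abundant were Afmid and Acmsd (4.57 and 4.05 CPM per kb). In chow vehicle livers Gnmt led with 2855 CPM per kb, ahead of Cdo1 with 1850.5 and Mat1a with 1441 CPM per kb. The median coefficient of variation over the 53 genes within a group ran from 15.8% with high-dose zalfermin to 30.5% with low-dose semaglutide.

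Other genes of the same metabolism were counted from a list of 40, of which 39 were tested. With the combination 16 were higher and 2 lower, in chow vehicle 30 higher and 3 lower, and with high-dose zalfermin 21 higher and 2 lower. Of all genes, 10% were higher with the combination, 26.5% in chow vehicle and 8.54% with high-dose zalfermin. The median log2 fold change of the 39 genes was 0.21 with the combination and 0.60 in chow vehicle. Asns, which makes asparagine and is a target of the amino acid response, had log2 fold changes with the combination of -1.41 ± 0.51 (adjusted p = 0.0425) and with high-dose zalfermin of -1.85 ± 0.55 (adjusted p = 0.0141), and was higher in chow vehicle by 2.61 ± 0.44 (adjusted p = 1.69e-06). Its level was low, 0.252, 1.05 and 2.15 CPM in DIO-MASH vehicle, 0.615, 7.46 and 14.8 CPM in chow vehicle and 0.186, 0.469 and 0.621 CPM with the combination. Pipox, which oxidizes pipecolate and sarcosine, was higher with the combination by 0.87 ± 0.11 (adjusted p = 4.96e-08).

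The counts of transporters and regulators stand beside shares of all genes higher of 26.5% in chow vehicle, 8.54% with high-dose zalfermin and 10% with the combination. Of 10 tested amino acid transporters, 9 were higher in chow vehicle, 8 with high-dose zalfermin and 4 with the combination, with none lower. The largest combination values were those of Slc3a1, a subunit of the cystine and dibasic amino acid transporter (1.17 ± 0.26, adjusted p = 6.36e-04), Slc16a10, which carries aromatic amino acids (0.92 ± 0.14, adjusted p = 4.31e-06), and Slc38a2, a neutral amino acid transporter (0.62 ± 0.21, adjusted p = 0.0245). Of 10 regulators, 7 were higher in chow vehicle, 5 with high-dose zalfermin and 3 with the combination. They were led with the combination by Hnf4a, a hepatocyte nuclear receptor (0.80 ± 0.14, adjusted p = 1.87e-05), Ppargc1a, a coactivator of fasting metabolism (0.78 ± 0.17, adjusted p = 5.32e-04), and Nr3c1, the glucocorticoid receptor (0.24 ± 0.08, adjusted p = 0.0275).

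Low-dose semaglutide mouse 6 had the highest level of its group for 51 of the 53 genes, and low-dose zalfermin mouse 1 for 46. The study's methods exclude 1 low-dose semaglutide library, which the deposited table does not mark, so all 8 were kept. Without mouse 6 the median log2 CPM difference of the 53 genes from DIO-MASH vehicle was 0.14 in place of 0.24, and edgeR still called 0 of the 53. The 12 genes called with low-dose zalfermin became 1 without mouse 1 of that group, 6 without DIO-MASH vehicle mouse 1, 5 without mouse 4, 7 without mouse 6 and 6 without mouse 8 of DIO-MASH vehicle, and 23 without low-dose semaglutide mouse 6, which shares the estimate of the spread. The 13 genes called with high-dose semaglutide became 21 without mouse 7 of that group, 4 without mouse 4, 7 without mouse 3 and 8 without mouse 2, and 8 without DIO-MASH vehicle mouse 2 or mouse 4. Of the genes described in full by rule, 8 of 9 low-dose zalfermin calls and 9 of 12 high-dose semaglutide calls were lost at least once. The highest adjusted p of each lost low-dose zalfermin call, 0.0882 to 0.231, came without mouse 1 of that group. Those of the lost high-dose semaglutide calls ran from 0.051 to 0.167 and came without mouse 3 or mouse 4 of that group. With the combination 3 of 27 calls were lost at least once, Amdhd1 at up to 0.203 without combination mouse 3, Oat at up to 0.0625 without combination mouse 1 and Gpt2 at up to 0.0522 without DIO-MASH vehicle mouse 6.

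The animals' identification numbers fall into 3 main series, spread over all groups, whose meaning the labels do not give. A further series holds 2 chow vehicle mice, 1 DIO-MASH vehicle mouse and no treated mouse, and it is not in the values that follow. Within the 3 series the median log2 difference of the 53 genes from DIO-MASH vehicle was 1.09, 0.69 and 0.96 in chow vehicle, 0.60, 0.57 and 0.58 with the combination, and 0.82, 0.64 and 0.59 with high-dose zalfermin. It was 0.53, 0.36 and 0.35 with low-dose zalfermin, 0.18, 0.40 and 0.27 with low-dose semaglutide, and 0.58, 0.16 and 0.05 with high-dose semaglutide, from 1 to 4 mice of each group in a series. All medians were positive, and that of high-dose semaglutide was near 0 in the last series, where 23 of 53 differences were negative.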

How the data were processed

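Liver RNA of 56 mice (8 per group, 7 groups) was sequenced on a NextSeq 500 from stranded mRNA libraries. The authors deposited 1 table of whole-number read counts per gene, not normalized. The study's methods name STAR with GRCm38 and Ensembl release 89, whereas the submitters' processing notes list Trim Galore 0.6.4 and Salmon 1.9.0. The counting step and its use of strand are not given in the sources used here, so reads of overlapping and antisense genes cannot be told apart. Mice were grouped by GEO's labels. Of 21935 genes, 4352 had no reads.

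Counts were fitted with edgeR 4.0.16 (R 4.3.3): TMM scaling, a minimum of 5 reads in at least 3 mice (14105 genes kept), 1 quasi-likelihood fit of the 7 groups without covariates, and Benjamini-Hochberg adjustment over all tested genes at 0.05. All ± values after log2 fold changes are standard errors. The common biological coefficient of variation was 22.6%. Paralog balances used log2 CPM with a prior count of 2 and an exact two-sided permutation test (SciPy 1.17.1). Depth was 5228187 to 20885786 counted reads. Alternatives were DESeq2 1.42.0, its size factors, other filters (at least 1 read in all, or at least 10 reads in no fewer than 8 mice), the animals' number series as a covariate, fits of only the groups compared, a prior count of 0.5, raw library totals, each mouse left out, and, added after seeing the data, scaling to hepatocyte markers. Fits were tested on simulated counts.

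The 53 genes and all lists were chosen with earlier results of these data known. Genes described in full were, in each of 9 pathway lists, up to 2 with the largest called fold change with the combination, up to 1 more with the largest in chow vehicle, and both members of 5 paralog pairs. The other lists' 3 leading called genes were named, except 1 that is not reported here. Csad, Hgd, Mat1a and other members outside this rule were named after their values were seen. Gene coordinates are from GENCODE M21 (GRCm38), matched by symbol, and promoter sequences from RefSeq (GRCm38.p6), matched for 42 of the 53 genes.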

Additional observations from a re-analysis of the deposited data

Results flagged for a closer look

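Values were flagged where the highest or lowest mouse of a group of 8 lay so far from the next that the gap, divided by the range of the group, passed Dixon's critical value for 8 samples. Chance flags about 1 in 20 groups. Of 245 groups tested (35 quantities in 7 groups), 42 were flagged, or 17.1%, and 20 of the flags fell on low-dose semaglutide mouse 6 and 9 on low-dose zalfermin mouse 1.

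Low-dose semaglutide mouse 6 was the highest of its group, with 46968 CPM for the summed level of the 53 genes (others 20985 to 29978), 6069.7 CPM for Cps1 (others 1582 to 3284), 620.2 CPM for Asl (others 280.5 to 436) and 496 CPM for Gls2 (others 87.7 to 229). Its values were also the highest for the next genes, with 1714 CPM for Oat (others 622 to 789.9), 447 CPM for Aldh4a1 (others 259 to 316), 3819.5 CPM for Hpd (others 1236 to 1912) and 793 CPM for Fah (others 422 to 566). The same mouse gave 45.04 CPM for Afmid (others 16.7 to 26.3), 359.8 CPM for Agxt (others 78.2 to 143), 279 CPM for Amdhd1 (others 82.4 to 165) and 584 CPM for Hal (others 49.6 to 242). Further values were 1984 CPM for Gnmt (others 639 to 1247), 642 CPM for Ahcy (others 270.4 to 360.1), 353 CPM for Cth (others 102 to 178) and 371 CPM for Aass (others 163 to 252). It reached 104 CPM for Bckdhb (others 73.8 to 84.1), 299 CPM for Bckdha (others 202 to 243), 448 CPM for Gpt (others 245 to 331) and 1267 CPM for Bhmt (others 483 to 756) as well.

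Low-dose zalfermin mouse 1 was the highest of its group, with 43092 CPM for the summed level of the 53 genes (others 26001 to 31611), 5919.6 CPM for Cps1 (others 2595 to 3725), 401 CPM for Gls2 (others 181 to 252) and 427 CPM for Got1 (others 195 to 297). Its values were also the highest for the next genes, with 1667 CPM for Oat (others 756 to 1170.3), 46.6 CPM for Afmid (others 19.96 to 29.2), 256 CPM for Agxt (others 108 to 158) and 615 CPM for Ahcy (others 304 to 424). The same mouse gave 395 CPM for Aass (others 219.5 to 294).

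High-dose zalfermin mouse 1 was the highest of its group, with 4739 CPM for Hpd (others 2905 to 3746), 121 CPM for Bckdhb (others 78.5 to 97.5) and 285 CPM for Bhmt2 (others 213 to 243). High-dose zalfermin mouse 1 was the lowest of its group, with 53.8 CPM for Csad (others 129.8 to 176). Chow vehicle mouse 6 was the lowest of its group, with 346 CPM for Gls2 (others 496 to 628) and 220.4 CPM for Cth (others 477 to 645). Chow vehicle mouse 2 was the highest of its group, with 559.5 CPM for Got1 (others 176 to 309). Chow vehicle mouse 7 was the highest of its group, with 396 CPM for Bckdha (others 284 to 332). Combination mouse 3 was the highest of its group, with 304 CPM for Amdhd1 (others 110.1 to 175) and 441 CPM for Hal (others 126 to 267). Combination mouse 6 was the highest of its group, with 4358 CPM for Hpd (others 2509.5 to 3211). DIO-MASH vehicle mouse 7 was the highest of its group, with 372 CPM for Ahcy (others 221 to 284). DIO-MASH vehicle mouse 8 was the highest of its group, with 14.7 CPM for Sdsl (others 7.04 to 10.7). No explanation of these mice was tested.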

How the results depend on the processing

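Counts of called genes in chow vehicle (50 to 53 when each mouse was left out in turn), with the combination (35 to 41), with high-dose zalfermin (41 to 48) and with low-dose semaglutide (0) kept their size under leaving out mice, DESeq2 size factors, both other filters on low counts, the number series as a covariate and fits of only the groups compared. DESeq2's Wald test gave 3 calls with low-dose semaglutide, 23 with low-dose zalfermin, 10 for the combination against low-dose zalfermin and 11 for high-dose zalfermin against high-dose semaglutide. Keeping genes with 1 or more reads gave 3 for high-dose against low-dose zalfermin. Fits of only the groups compared gave 10 for the combination against low-dose zalfermin, 5 against low-dose semaglutide and 1 against high-dose semaglutide, and 10 for high-dose against low-dose zalfermin. Scaling to 6 hepatocyte markers, added after seeing the data, gave 34 calls in chow vehicle (8 higher, 26 lower, and of all 14105 genes 153 higher, 12993 lower), 26 with the combination (10 higher, 16 lower, of all genes 95 and 10561), 27 with high-dose zalfermin (23 higher, 4 lower, of all genes 181 and 7314), 2 with low-dose zalfermin and 2 with high-dose semaglutide. Without Hp these were 35 (8 higher, 27 lower), 26 (10 higher, 16 lower), 26 (21 higher, 5 lower), 1 (1 higher, 0 lower) and 2 (1 higher, 1 lower). From raw library totals the summed level was 40054.3 CPM in chow vehicle and 24404.1 CPM in DIO-MASH vehicle. Beyond each setting's own construction, the cause of these changes was not tested. Leaving out each mouse gave 1 to 23 calls with low-dose zalfermin, 4 to 21 with high-dose semaglutide, 0 to 12 for high-dose against low-dose zalfermin, 3 to 12 for high-dose zalfermin against high-dose semaglutide, and, for the combination, 3 to 10 against low-dose zalfermin, 0 to 7 against high-dose semaglutide and 7 to 31 against low-dose semaglutide. With hepatocyte marker scaling set aside, of calls for the named genes, 640 of 654 under the other alternatives and 2487 of 2616 with a mouse left out stayed past the threshold in the same direction, and none reversed. Of the 143 losses, 125 fell on the 21 calls with low-dose zalfermin or high-dose semaglutide. The labels give no replicate numbers that groups share, so no pairs were formed, and the animals' number series stood in as a covariate. Depth limits the lowest genes, such as Asns, more than the 53 genes.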
